A study of Mus musculus with 18 samples.

Results

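P/Rbf mammary tumors, which lack p53 and express T121, were compared gene by gene with B1/P mammary tumors, which lack p53 and Brca1. The comparison takes every tumor that the labels place in either group, 5 and 5, which is 10 of the 18 samples sequenced, each from its own mouse. The other samples were 5 B1/P/Rbf tumors, which carry all 3 alterations, and 3 normal mammary glands, and their levels are given only for orientation. In the P/Rbf mice the genotype is Trp53fl/fl with the TgK18GT121 transgene as Tg/+, and in the B1/P mice it is Brca1fl/fl with Trp53fl/fl. T121 is an N-terminal fragment of the SV40 large T antigen that binds pRb, p107 and p130 and blocks their function. Its transgene depends on Cre and is driven by the promoter of keratin 18, so T121 is made in epithelial cells. In both models an adenovirus carrying Cre under a CMV promoter was injected through the nipple into the ducts of adult C57Bl/6 females. Recombination was thus induced in the ductal cells that the virus reached, and both groups share the virus, the strain and the loss of Trp53. The groups differ both in Brca1 and in T121, whose effects cannot be told apart from this pair alone. The bulk tissue holds tumor cells and stroma together, and fewer cells of a type cannot be told apart from less RNA per cell.

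The mammary duct has an inner luminal layer, marked by simple keratins such as K8 and K18, and an outer basal or myoepithelial layer, marked by K5, K14 and p63, which rests on a basement membrane of laminin and type IV collagen. Part of the luminal cells carry estrogen and progesterone receptors under the transcription factors Foxa1 and Gata3, while luminal progenitors express Kit and Elf5. The pocket proteins pRb, p107 and p130 restrain the E2F factors that drive genes of DNA replication and of nucleotide synthesis.

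Total expected counts ranged from 29201325 to 37794889 read pairs over the 10 tumors. Levels are CPM, counts scaled to the size of each library after TMM scaling. A positive log2 fold change (log2 FC) means a higher level in P/Rbf tumors, and a gene was called where its p, adjusted by Benjamini-Hochberg, was at most 0.05 in edgeR's quasi-likelihood test over the 19186 genes kept. By this test 3684 genes were called (19.2%), of which 1618 were higher (8.43%) and 2066 lower (10.8%) in P/Rbf tumors. The groups did not overlap for 1697 genes (8.84%), of which 1554 were also called, and 2922 called genes differed by at least 2-fold. The median log2 fold change over all genes tested was −0.05. Calls fell to 1763 when the spread was estimated from the 10 tumors alone. The labels and methods name no batch, and the study pooled its 18 samples for sequencing. As an alternative, 2 library sets were assumed, inferred here from fold changes that the study lists for other comparisons. The first set holds B1/P tumors 225068, 225070 and 246361, and the second the other 2 and all P/Rbf tumors. With a term for the set, which by its construction leaves 2 B1/P tumors to compare with 5 P/Rbf tumors, 618 genes were called higher and 1390 lower. Calls that end under this term are named in each paragraph. Between the 2 B1/P tumors of the second set and the 3 of the first, edgeR called 0 genes, with 1316 genes (6.86%) at an unadjusted p below 0.05.

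Values per tumor are listed in the same order throughout, P/Rbf tumors 287842, 287845, 290860, 287822 and 290845 and then B1/P tumors 225068, 225070, 246361, 255232 and 248662. Ranges give P/Rbf tumors first and B1/P tumors second. Each adjusted p is from edgeR's quasi-likelihood test unless another tool is named. The genotype labels were checked first. Brca1 (chromosome 11, 101488764 to 101551955 in GRCm38, the build of all coordinates here) had 44.9, 111, 66.5, 116 and 55.9 in P/Rbf against 10.9, 21.03, 8.60, 27.9 and 8.13 CPM in B1/P. The groups did not overlap (log2 FC 2.37, SE 0.37, adjusted p = 0.000845), and the B1/P level came from whole-gene counts that do not separate the deleted exons. Trp53 (chromosome 11, 69580359 to 69591873) had 8.86 to 13.8 against 6.75 to 24.3 CPM, with 61.5 ± 9.16 CPM in normal glands (log2 FC −0.45, SE 0.32, adjusted p = 0.328). Every tumor of both groups lay below every gland. Its direction turned with the library-set term (log2 FC 0.50, adjusted p = 0.349). Rb1 (chromosome 14, 73183673 to 73325822), which neither model deletes, had 17.0 to 64.1 against 20.4 to 26.3 CPM and was not called (log2 FC 0.68, SE 0.31, adjusted p = 0.129). Without P/Rbf tumor 287842, the lowest of its group, Rb1 was called (log2 FC 0.91, adjusted p = 0.0369). RNA of the T121 transgene was not analysed here.

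Genes of luminal epithelial structure are here the simple keratins and the proteins of cell junctions and apical membranes. Of 28 tested, 17 were called higher and 1 lower, beside 8.43% and 10.8% of all genes. The median log2 fold change was 1.15, beside −0.05 over all genes. Higher calls were 9 without tumor 290845, 10 without 225068 and 11 without 246361. They were 8 for the 10 tumors alone and 5 with the library-set term. Krt8 (chromosome 15, 101996698 to 102004482) had 3536, 2868, 1010, 1647 and 1384 in P/Rbf against 308, 229.7, 10.7, 145 and 883 CPM in B1/P. Its partner keratin Krt18 (chromosome 15, 102028180 to 102032027) had 1922, 3817, 662, 2553 and 1115 in P/Rbf against 322, 233, 204, 207 and 542 CPM in B1/P. Both keratins separated the groups completely (log2 FC 2.73, SE 0.72, adjusted p = 0.0148 for Krt8 and log2 FC 2.74, SE 0.44, adjusted p = 0.000952 for Krt18), and B1/P tumor 246361 had the least of both. The transgene of the P/Rbf mice is a bacterial artificial chromosome that uses the Krt18 promoter. What part it has in the levels of Krt18 or of nearby Krt8 was not tested. Krt7, another simple keratin, had 614, 574, 386, 906 and 987 in P/Rbf against 72.7, 191, 2.71, 41.7 and 154 CPM in B1/P (log2 FC 2.91, SE 0.70, adjusted p = 0.00958). Krt19 had 4393, 828, 2311, 1798 and 1777 in P/Rbf against 104, 157, 0.0251, 39.8 and 941 CPM in B1/P and was not called (log2 FC 3.16, SE 1.14, adjusted p = 0.0605). B1/P tumor 248662 lay within the range of the P/Rbf tumors. Without this tumor Krt19 was called (log2 FC 4.88, adjusted p = 0.011), as it was without B1/P tumor 246361 (log2 FC 2.84, adjusted p = 0.0222). DESeq2 (adjusted p = 0.00981) and limma-voom (adjusted p = 0.0213) also called Krt19 higher.

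Cdh1, which encodes E-cadherin, had 1388, 749.7, 834, 574 and 1352 in P/Rbf against 371, 394, 208, 328 and 422 CPM in B1/P (log2 FC 1.51, SE 0.30, adjusted p = 0.00322). Epcam, an epithelial adhesion molecule, had 1023, 895, 1115, 908 and 1111 in P/Rbf against 846, 722, 259.7, 313 and 286 CPM in B1/P (log2 FC 1.06, SE 0.31, adjusted p = 0.0266). Both were higher in every P/Rbf tumor than in any B1/P tumor. The call of Epcam ended without B1/P tumors 246361, 255232 or 248662 or P/Rbf tumor 290845 (adjusted p up to 0.0601). Cldn1, a claudin of tight junctions, went the other way, with 0.306 to 9.18 against 8.95 to 85.8 CPM (log2 FC −3.21, SE 0.78, adjusted p = 0.00983). The summed level of 10 epithelial markers, which include Krt8, Krt18, Krt5 and Krt14, ran from 5686 to 9868 CPM in P/Rbf tumors and from 2087 to 4233 CPM in B1/P tumors. This sum counts Krt8 and Krt18 again, and epithelial content apart from them was not tested. edgeR, DESeq2 and limma-voom each called 5 of these 10 markers higher and 0 lower (6 at an unadjusted p below 0.05 in edgeR). The calls of Krt8 and Krt7 ended with the library-set term, and those of Krt18, Cdh1 and Epcam did not.

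Of hormone receptors and genes of hormone-sensing luminal cells, 12 of 24 were called higher and 2 lower, beside 8.43% and 10.8% of all genes. The median log2 fold change was 2.17. Higher calls were 7 without B1/P tumors 246361 or 255232 and 4 in the fit of the 10 tumors. Esr1, the estrogen receptor alpha gene (chromosome 10, 4611593 to 5005614), had 82.2, 12.1, 75.6, 32.4 and 63.4 in P/Rbf against 2.80, 6.63, 9.83, 12.6 and 20.9 CPM in B1/P (log2 FC 2.33, SE 0.50, adjusted p = 0.00513). P/Rbf tumor 287845 lay inside the B1/P range and the other 4 lay above it, and both groups stayed below the 181 ± 60.5 CPM of B1/P/Rbf tumors (SD, n = 5) and the 122 ± 20.7 CPM of normal glands (SD, n = 3). Pgr, the progesterone receptor gene, had 150.3, 4.16, 205, 43.9 and 233 in P/Rbf against 0.0318, 0.148, 4.27, 28.6 and 46.0 CPM in B1/P and was not called (log2 FC 3.01, SE 1.20, adjusted p = 0.0866). P/Rbf tumors 287845 and 287822 lay within the B1/P range, and DESeq2 and limma-voom called Pgr. Prlr, the prolactin receptor gene, had 25.99 to 308 against 12.8 to 225 CPM and was not called (log2 FC 1.63, SE 0.80, adjusted p = 0.156), but it was called without B1/P tumor 248662 (log2 FC 3.17, adjusted p = 0.00668). Areg, an epidermal growth factor receptor ligand made by hormone-sensing cells, had 16.3 to 245 against 1.83 to 105 CPM and was not called (log2 FC 2.02, SE 1.00, adjusted p = 0.162), but was called without 248662 (log2 FC 3.65, adjusted p = 0.0203). Greb1, an estrogen-induced gene, stayed at or below 5.91 CPM in every tumor of both groups (log2 FC −0.38, SE 1.02, adjusted p = 0.825). Igfbp5, which binds insulin-like growth factors, had 13.8, 111, 192, 49.3 and 510 in P/Rbf against 1785, 707, 309.7, 1396 and 1488 CPM in B1/P (log2 FC −2.70, SE 0.88, adjusted p = 0.0414). Its call ended without B1/P tumors 225068, 255232 or 248662 or P/Rbf tumors 287842, 287845, 290860 or 287822 (adjusted p up to 0.0803). With the library-set term edgeR called 0 members of this list higher and 1 lower, Esr1 and Igfbp5 no longer among them, and the median of the list was 1.63.

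**Figure D1:**
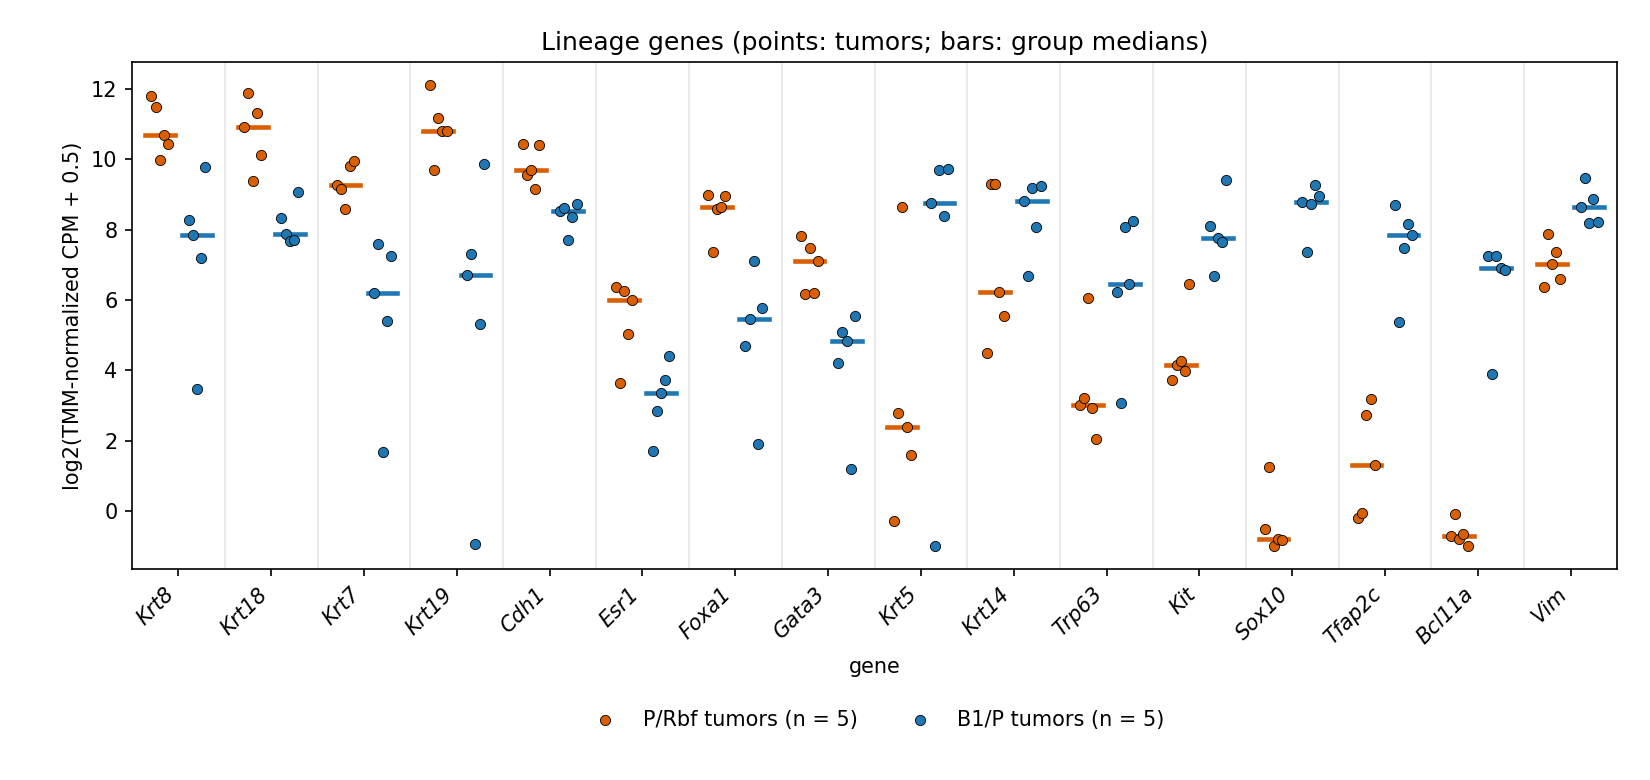
Lineage genes in each tumor. Points give CPM on a log2 axis (after adding 0.5) for single P/Rbf (orange) and B1/P (blue) tumors, and bars give group medians. Krt8, Krt18, Cdh1, Foxa1 and Gata3 of P/Rbf tumors lie above the whole B1/P group, Sox10, Tfap2c, Bcl11a and Vim lie below, and Krt5, Krt14 and Trp63 overlap, with Krt5 at 0 in B1/P tumor 225070 and at 398 CPM in P/Rbf tumor 290860.

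Transcription factors of the luminal lineage had 8 of 24 called higher and 2 lower, beside 8.43% and 10.8% of all genes, with a median of 0.54. Counts turned to 1 higher and 2 lower with the library-set term (median 0.67) and to 2 and 3 in the second set alone. Foxa1, which opens chromatin for the estrogen receptor (chromosome 12, 57540628 to 57546916), had 503, 166, 381, 401 and 500.5 in P/Rbf against 25.2, 44.0, 137, 3.22 and 53.9 CPM in B1/P (log2 FC 2.89, SE 0.61, adjusted p = 0.00441). Gata3, needed for luminal differentiation (chromosome 2, 9857078 to 9890034), had 226, 72.0, 179, 72.7 and 138 in P/Rbf against 18.1, 33.6, 28.2, 1.77 and 46.5 CPM in B1/P (log2 FC 2.42, SE 0.56, adjusted p = 0.00718). Neither overlapped between the groups, and B1/P tumor 255232 had the least of both. Spdef, an ETS factor of secretory epithelium, had 0.978 to 53.6 against 0.385 to 3.42 CPM (log2 FC 3.41, SE 0.93, adjusted p = 0.018). Stat5a, which relays prolactin signals, had 28.7 to 306 against 12.8 to 48.0 CPM (log2 FC 1.95, SE 0.60, adjusted p = 0.0318). The call of Stat5a ended without B1/P tumors 225068, 246361 or 248662 or P/Rbf tumor 290860 (adjusted p up to 0.119). Tfap2c, an AP-2 factor, had 0.374, 0.473, 6.12, 8.69 and 1.97 in P/Rbf against 418, 41.4, 179, 288 and 232 CPM in B1/P (log2 FC −6.03, SE 0.82, adjusted p = 0.000327). Id4, a helix-loop-helix inhibitor found in basal cells, had 0.201, 1.36, 2.96, 0.368 and 1.70 in P/Rbf against 189, 1.39, 459, 277 and 382 CPM in B1/P (log2 FC −7.63, SE 1.28, adjusted p = 0.00121). B1/P tumor 225070 stood with the P/Rbf tumors for Id4, while the other 4 B1/P tumors were all at or above 189 CPM. The calls of Gata3, Spdef and Stat5a ended with the library-set term, and those of Foxa1, Tfap2c and Id4 stayed. Neither Spdef nor Stat5a was called by limma-voom.

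Luminal progenitor and alveolar genes had 0 members called higher and 5 of 24 called lower by edgeR, with 7 at an unadjusted p below 0.05 and 1 higher and 6 lower by DESeq2. Kit, the stem cell factor receptor of luminal progenitors, had 12.8, 17.4, 18.7, 15.2 and 87.3 in P/Rbf against 275, 103, 219, 202 and 677 CPM in B1/P (log2 FC −3.29, SE 0.84, adjusted p = 0.0124). Elf5, the alveolar ETS factor, had 0.144, 1.39, 37.1, 9.77 and 0.136 in P/Rbf against 79.8, 56.3, 11.8, 49.2 and 51.3 CPM in B1/P and was not called (log2 FC −2.35, SE 1.31, adjusted p = 0.211), though limma-voom called it lower (log2 FC −4.28, adjusted p = 0.0217). The progenitor marker Aldh1a3 had 3.24 to 49.0 against 11.3 to 115 CPM and was not called either (log2 FC −1.303, SE 0.76, adjusted p = 0.233). Csn1s1, which encodes alpha casein, had 0.0288, 0.0315, 0, 0 and 0 in P/Rbf against 5.63, 1480, 4.50, 2.78 and 76.2 CPM in B1/P. The P/Rbf tumors held 2 counts of it in all, and its level there was 26840-fold lower (95% interval, counting error alone, 7431 to 221700), or 1816-fold lower (502 to 15000) without B1/P tumor 225070, which carried most of the Csn1s1 and Csn2 RNA of its group. For Csn2, the beta casein gene, the values were 0, 0.0315, 0.0506, 0.0526 and 0 CPM in P/Rbf against 4.55, 76.9, 2.39, 3.70 and 25.4 CPM in B1/P tumors, 765-fold lower (328 to 2357), or 296-fold (127 to 914) without 225070. Wfdc18, a whey acidic protein family gene, had 0.034 to 8.55 against 103 to 515 CPM (log2 FC −6.56, SE 1.20, adjusted p = 0.00206). The median log2 fold change of the list was −1.13, and 0.03 with the library-set term, under which 5 members were again called lower.

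Basal and myoepithelial genes were lower in part, with 0 of 32 called higher by edgeR, 11 called lower and a median log2 fold change of −1.13. No member was called higher by DESeq2 or by limma-voom, and 16 had an unadjusted p below 0.05. The keratins of the basal layer were not called. Krt5 had 0.316, 6.43, 398, 4.74 and 2.55 in P/Rbf against 436, 0, 824, 334 and 854 CPM in B1/P (log2 FC −2.57, SE 1.76, adjusted p = 0.314). Krt14 had 22.2, 633, 625, 74.5 and 46.5 in P/Rbf against 453, 102, 584, 269 and 605 CPM in B1/P (log2 FC −0.52, SE 0.94, adjusted p = 0.727). Both groups held tumors with much and with little of either keratin. Without P/Rbf tumor 290860, the only one rich in Krt5, Krt5 was called lower (log2 FC −7.12, adjusted p = 0.0209). Trp63, which encodes p63, had 7.54, 8.77, 66.4, 7.16 and 3.68 in P/Rbf against 74.9, 7.91, 268, 86.8 and 306 CPM in B1/P (log2 FC −2.99, SE 0.98, adjusted p = 0.0408, or log2 FC −4.45 without 290860), and B1/P tumor 225070 lay among the P/Rbf tumors. Its call ended without B1/P tumors 246361 or 248662 or P/Rbf tumors 287842, 287845, 287822 or 290845 (adjusted p up to 0.0871), and with the library-set term. Acta2, smooth muscle actin of contractile cells, had 31.8 to 105 against 51.9 to 234 CPM and was not called (log2 FC −1.17, SE 0.49, adjusted p = 0.0992). limma-voom did not call Trp63.

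The member with the largest difference was Sox10, a factor of neural crest and of mammary stem and progenitor cells (chromosome 15, 79154908 to 79165240). It had 0.201, 1.89, 0, 0.079 and 0.0681 in P/Rbf against 439, 164, 428, 612 and 494 CPM in B1/P (log2 FC −9.91, SE 1.34, adjusted p = 0.000313, or log2 FC −12.22 without 287845). All 5 B1/P tumors exceeded the 25.5 ± 3.01 CPM of normal glands (SD, n = 3), and B1/P/Rbf tumors had 0.666 ± 1.16 CPM (SD, n = 5). Lgr6, a Wnt pathway receptor, had 0.92, 2.90, 3.85, 0.263 and 2.35 in P/Rbf against 58.2, 155, 201, 53.5 and 84.4 CPM in B1/P (log2 FC −5.74, SE 0.71, adjusted p = 0.000194). Oxtr, the oxytocin receptor of myoepithelial cells, had 0.0288 to 1.14 against 2.69 to 48.5 CPM (log2 FC −5.65, SE 0.99, adjusted p = 0.00159, or log2 FC −6.82 without 287845). Bcl11a, a zinc finger factor of progenitors that no list holds and that was among the 10 largest falls of all genes, had 0.115, 0.442, 0.0759, 0.132 and 0 in P/Rbf against 152, 14.3, 154, 119.7 and 115 CPM in B1/P (log2 FC −9.48, SE 0.99, adjusted p = 8.73e-05). The calls of Sox10, Lgr6, Oxtr and Bcl11a held without each tumor and in each of the alternative fits that tested them.

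Genes tied to epithelial to mesenchymal transition had 0 of 22 called higher and 8 called lower by edgeR (median −1.02). Vim, the intermediate filament vimentin, had 81.7, 236, 129, 163 and 96.5 in P/Rbf against 400.2, 703, 293, 469.9 and 298 CPM in B1/P (log2 FC −1.62, SE 0.34, adjusted p = 0.00439). Gas1, a membrane protein that modulates hedgehog signals, had 1.27, 8.11, 7.11, 6.76 and 1.498 in P/Rbf against 219.7, 18.0, 259, 187 and 148 CPM in B1/P (log2 FC −5.07, SE 0.71, adjusted p = 0.000425). Pdpn, podoplanin, had 2.10 to 15.7 against 32.1 to 46.7 CPM (log2 FC −2.53, SE 0.52, adjusted p = 0.00405). Cdh2, which encodes N-cadherin, had 0.632 to 5.46 against 4.30 to 129 CPM (log2 FC −4.35, SE 0.83, adjusted p = 0.00262, or log2 FC −3.07 without 255232). The factor Snai2 had 2.08 to 16.2 against 4.41 to 98.0 CPM (log2 FC −2.89, SE 0.64, adjusted p = 0.00574). Vim, Gas1 and Pdpn did not overlap between the groups. Fibroblasts also express several of these genes, and their markers moved in the same direction, as given below. No member was called higher by DESeq2 or limma-voom, and 13 had an unadjusted p below 0.05.

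Squamous genes gave 2 called higher and 4 lower of 28, with none free of overlap. These counts were 3 and 3 by DESeq2 and 1 and 1 by limma-voom, and they ranged from 0 to 5 higher and 1 to 5 lower with 1 tumor left out, with more higher than lower without B1/P tumor 248662. The fit of the 10 tumors called 0 of them. Sprr1a, a cornified envelope precursor, had 36.9 to 796 against 0.509 to 77.9 CPM (log2 FC 3.71, SE 1.16, adjusted p = 0.0333, or log2 FC 5.16 without 248662), a call that ended without B1/P tumors 246361 or 255232 or P/Rbf tumors 287842 or 290845 (adjusted p up to 0.0796) and with the library-set term. Calml3, an epithelial calmodulin-like protein, had 0.0863 to 10.1 against 6.43 to 67.7 CPM (log2 FC −3.63, SE 0.95, adjusted p = 0.014). Among ErbB receptors and their ligands, Erbb2, the Her2 gene, had 167, 109, 141, 193 and 90.1 in P/Rbf against 131, 132, 102, 108 and 122 CPM in B1/P and was not called (log2 FC 0.23, SE 0.21, adjusted p = 0.462). Egfr had 17.6 to 107 against 37.7 to 96.1 CPM and was not called (log2 FC −0.32, SE 0.49, adjusted p = 0.671). The ligands and partners split. Epgn, which encodes epigen, had 38.9, 16.6, 22.5, 17.5 and 33.8 in P/Rbf against 0.795, 1.75, 2.39, 0.414 and 2.24 CPM in B1/P (log2 FC 4.09, SE 0.78, adjusted p = 0.00266). Grb7, an adaptor next to Erbb2, had 49.5 to 109 against 20.6 to 43.7 CPM (log2 FC 1.37, SE 0.26, adjusted p = 0.0026). Nrg2, a neuregulin, had 0 to 0.711 against 6.31 to 19.2 CPM (log2 FC −5.59, SE 0.89, adjusted p = 0.000888). These 3 of 16 were called, beside 19.2% of all genes, and none overlapped, beside 8.84% of all genes. Without tumor 287822, 2 were called higher and 3 lower.

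The pocket protein and E2F network, whose pocket proteins T121 binds, had 11 of 28 members called higher and 4 lower, with a median log2 fold change of 0.68. This lean was lost with the library-set term and in the second set alone, each with 3 higher and 3 lower (median 0.55), and 7 were higher without B1/P tumor 225068 or P/Rbf tumors 287845 or 287822. Cdkn2c, which encodes the CDK4/6 inhibitor p18, had 60.0, 99.5, 64.6, 129.8 and 36.9 in P/Rbf against 19.9, 14.2, 12.9, 23.3 and 18.2 CPM in B1/P (log2 FC 2.14, SE 0.33, adjusted p = 0.000804). Cdkn2a, which encodes p16 and ARF, had 244, 167, 158, 160.4 and 371 in P/Rbf against 128, 119, 48.8, 104 and 91.8 CPM in B1/P (log2 FC 1.16, SE 0.30, adjusted p = 0.0139), and it was near 0.454 ± 0.0326 CPM in normal glands (SD, n = 3). Cdkn1a, the p21 gene, had 86.9 to 217 against 23.5 to 76.6 CPM (log2 FC 1.35, SE 0.32, adjusted p = 0.00774). The pocket protein p107, encoded by Rbl1, had 68.5, 130, 84.7, 179 and 86.5 in P/Rbf against 52.2, 26.4, 41.8, 39.6 and 73.3 CPM in B1/P (log2 FC 1.23, SE 0.30, adjusted p = 0.01). By contrast, p130, encoded by Rbl2, had 34.1, 27.0, 25.8, 30.5 and 30.2 in P/Rbf against 77.1, 64.2, 34.1, 54.6 and 123 CPM in B1/P (log2 FC −1.26, SE 0.26, adjusted p = 0.00391). The repressor E2f7 had 23.3 to 82.9 against 10.0 to 25.0 CPM (log2 FC 1.63, SE 0.32, adjusted p = 0.00309). The 4 members called lower were Ccnd2, Cdk6, Ccnd1 and Rbl2. Ccnd2, a D-type cyclin, had 13.1, 15.0, 58.7, 11.2 and 16.6 in P/Rbf against 185, 107, 208, 641 and 310.4 CPM in B1/P (log2 FC −3.66, SE 0.52, adjusted p = 0.000474). Cdk6, a kinase partner of D-type cyclins, had 50.4, 21.8, 20.4, 8.29 and 4.36 in P/Rbf against 363, 125, 374, 99.5 and 70.9 CPM in B1/P (log2 FC −3.29, SE 0.62, adjusted p = 0.00243). Ccnd1, cyclin D1, had 293, 314, 58.7, 39.3 and 41.5 in P/Rbf against 434, 429, 173, 1109 and 1212 CPM in B1/P (log2 FC −2.17, SE 0.66, adjusted p = 0.0299), with P/Rbf tumors 287842 and 287845 inside the B1/P range. The call of Ccnd1 ended without B1/P tumors 255232 or 248662 or P/Rbf tumors 290860, 287822 or 290845 (adjusted p up to 0.0679). Ccne1, cyclin E1, had 13.8 to 47.1 against 11.5 to 30.6 CPM and was not called (log2 FC 0.68, SE 0.30, adjusted p = 0.123), but was called without B1/P tumor 255232 (log2 FC 0.91, adjusted p = 0.0472) or P/Rbf tumor 287842 (log2 FC 0.91, adjusted p = 0.0341). With the library-set term the calls of Cdkn2a, Rbl1, E2f7 and Cdk6 ended, and those of Cdkn2c, Cdkn1a, Ccnd2 and Rbl2 stayed.

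Genes of replication licensing and S phase were called higher in 21 of 30 cases and lower in 0, with a median log2 fold change of 0.90. None was called lower by DESeq2 or limma-voom, and 24 had an unadjusted p below 0.05. Orc1, a subunit of the origin recognition complex, had 11.7, 16.1, 21.8, 14.8 and 19.2 in P/Rbf against 4.10, 10.5, 3.90, 7.04 and 2.74 CPM in B1/P (log2 FC 1.56, SE 0.34, adjusted p = 0.00525). Cdc6, which loads the replicative helicase, had 34.7, 67.5, 35.4, 57.7 and 37.8 in P/Rbf against 11.6, 20.2, 9.98, 30.6 and 11.7 CPM in B1/P (log2 FC 1.47, SE 0.31, adjusted p = 0.00451). Prim1, the primase catalytic subunit, had 51.0 to 98.3 against 20.1 to 30.7 CPM (log2 FC 1.33, SE 0.23, adjusted p = 0.00135). Gins2, a helicase cofactor, had 18.0 to 45.8 against 8.30 to 18.5 CPM (log2 FC 1.44, SE 0.28, adjusted p = 0.00323). Mcm6, a helicase subunit, had 249, 324, 297, 382 and 383 in P/Rbf against 147, 168, 168, 221 and 163 CPM in B1/P (log2 FC 0.91, SE 0.17, adjusted p = 0.002). Mcm2, another subunit, had 98.5 to 234 against 75.6 to 197 CPM and was not called (log2 FC 0.73, SE 0.25, adjusted p = 0.0515), but was called without B1/P tumor 255232 (log2 FC 1.04, adjusted p = 0.00467) or P/Rbf tumor 287842 (log2 FC 0.94, adjusted p = 0.0134) and by DESeq2 (adjusted p = 0.0304). For 13 of the 30 genes all P/Rbf tumors exceeded all B1/P tumors, beside groups that did not overlap, in either direction, for 8.84% of all genes tested. With the library-set term 7 members were still called higher, among them Orc1, Prim1 and Mcm6 but not Cdc6 or Gins2, and 0 lower.

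Because many of these genes were called in the same direction, their promoters were searched for the words TTTCCCGC, TTTCGCGC, TTTGCCGC and TTTGGCGC, which are forms of the E2F consensus, on both strands. Sequences are those of RefSeq for GRCm38.p6 and run from 250 bases before to 50 bases after the start of transcription. Of 32851 promoters searched, 744 (2.26%) held at least 1 of the words, as did 547 (4.12%) of 13271 tested genes searched. A promoter was searched for 25 of the 30 replication genes, and 12 of the 25 (48%) held a word, as did 8 of the 17 called higher (47.1%). Among the 28 genes of the pocket protein and E2F network, 21 were searched and 7 (33.3%) held a word, while 1 of 24 nucleotide synthesis genes did, and 0 of the 6 called higher. Over all genes called higher 98 of 1188 promoters (8.25%) held a word, and over all genes called lower 40 of 1467 (2.73%). The promoters below are those of 5 genes called higher that hold a word, shown 5′ to 3′ in the sense of the gene with the words in capitals. A match is a description of letters and was not tested as a binding site.

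Mcm6 (chr1:128359656-128359955, minus strand), with 3 words of which the first 2 overlap: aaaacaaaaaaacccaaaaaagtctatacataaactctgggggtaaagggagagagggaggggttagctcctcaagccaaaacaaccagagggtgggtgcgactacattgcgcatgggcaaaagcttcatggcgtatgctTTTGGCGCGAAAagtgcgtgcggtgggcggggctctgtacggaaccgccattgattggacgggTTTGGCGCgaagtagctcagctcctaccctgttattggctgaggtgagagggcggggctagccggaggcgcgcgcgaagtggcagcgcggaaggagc
Cdc6 (chr11:98907901-98908200, plus strand), with 1 word on the opposite strand: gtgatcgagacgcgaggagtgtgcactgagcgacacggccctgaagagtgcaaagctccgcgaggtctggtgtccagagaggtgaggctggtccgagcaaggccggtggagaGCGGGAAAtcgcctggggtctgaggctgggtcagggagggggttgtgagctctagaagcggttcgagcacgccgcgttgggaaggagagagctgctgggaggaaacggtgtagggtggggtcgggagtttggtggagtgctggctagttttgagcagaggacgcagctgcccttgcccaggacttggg
Orc1 (chr4:108579204-108579503, plus strand), with 1 word on the opposite strand: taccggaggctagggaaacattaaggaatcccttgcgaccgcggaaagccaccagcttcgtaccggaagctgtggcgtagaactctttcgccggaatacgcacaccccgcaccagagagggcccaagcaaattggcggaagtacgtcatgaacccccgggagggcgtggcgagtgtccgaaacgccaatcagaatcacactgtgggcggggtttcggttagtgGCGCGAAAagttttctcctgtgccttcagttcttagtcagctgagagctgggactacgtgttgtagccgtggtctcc
E2f7 (chr10:110745189-110745488, plus strand), with 1 word on the opposite strand: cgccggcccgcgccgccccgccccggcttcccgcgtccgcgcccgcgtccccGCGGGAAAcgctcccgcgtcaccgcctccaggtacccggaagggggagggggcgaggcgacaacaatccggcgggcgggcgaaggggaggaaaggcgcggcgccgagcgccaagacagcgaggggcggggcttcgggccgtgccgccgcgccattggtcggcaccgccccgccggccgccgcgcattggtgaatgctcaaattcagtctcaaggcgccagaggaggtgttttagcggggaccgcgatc
Rbl1 (chr2:157204485-157204784, minus strand), with 1 word: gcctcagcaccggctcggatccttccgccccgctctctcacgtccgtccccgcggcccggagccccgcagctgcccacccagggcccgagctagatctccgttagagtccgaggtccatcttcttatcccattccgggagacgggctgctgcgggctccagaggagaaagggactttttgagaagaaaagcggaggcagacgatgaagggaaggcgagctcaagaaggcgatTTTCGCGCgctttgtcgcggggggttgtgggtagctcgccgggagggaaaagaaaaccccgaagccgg

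**Figure D2:**
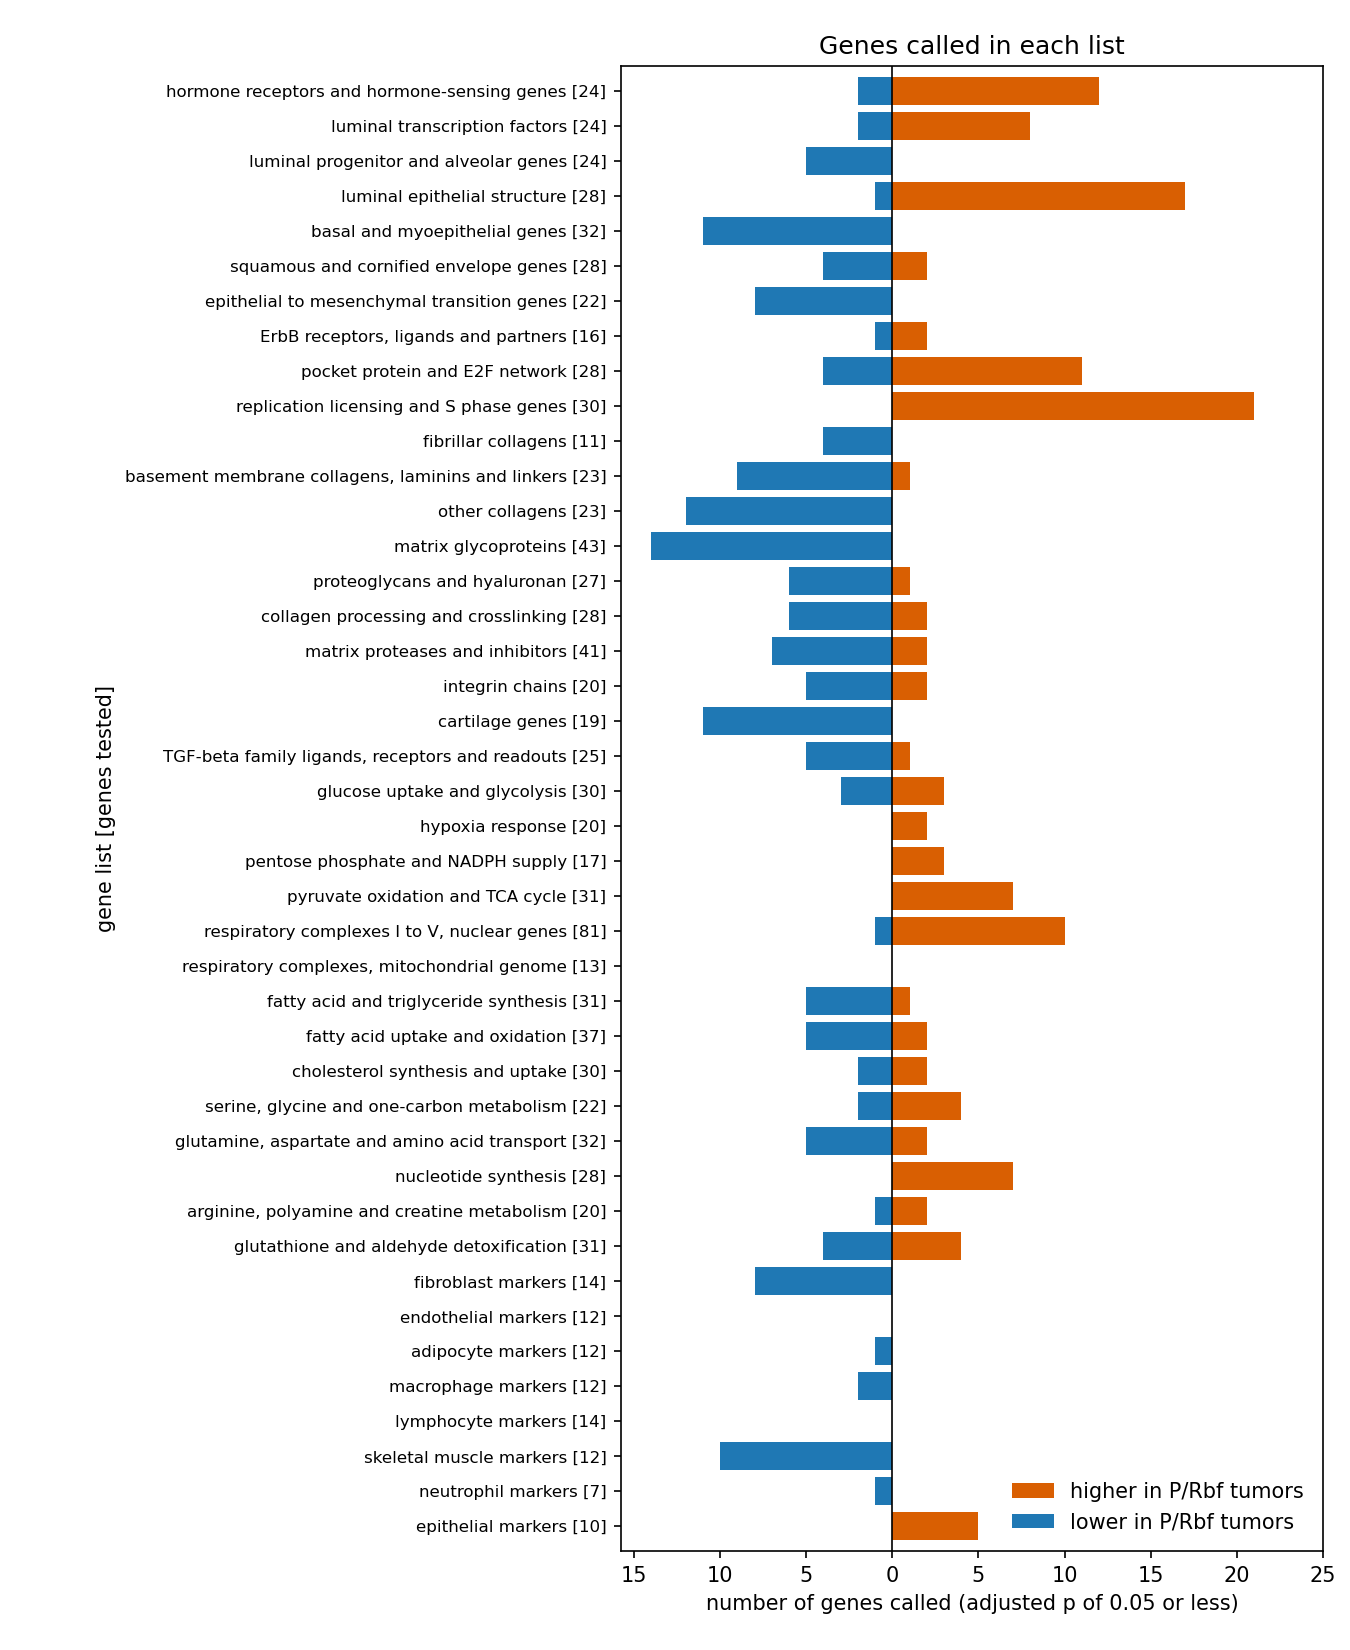
Members called in each gene list. Bars to the right count members called higher in P/Rbf tumors and bars to the left those called lower (edgeR, adjusted p of 0.05 or less), with the number tested in brackets. Luminal structure (17 higher, 1 lower) and replication genes (21 higher, 0 lower) lean to the right, and cartilage genes (0 higher, 11 lower), other collagens (0 higher, 12 lower) and matrix glycoproteins (0 higher, 14 lower) to the left.

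Matrix genes were called lower in P/Rbf tumors more often than higher. Over the 10 matrix lists together, counting each gene once, 72 of 247 were called lower and 9 higher, with a median log2 fold change of −0.92. Fibrillar collagens, which form the tensile fibers of stroma and cartilage, had 4 of 11 members called lower and 0 higher by edgeR, with 6 at an unadjusted p below 0.05. Col1a1, the main chain of type I collagen, had 322, 1390, 1005, 492 and 429.6 in P/Rbf against 649, 3608, 1728, 846 and 740.1 CPM in B1/P and was not called (log2 FC −1.06, SE 0.58, adjusted p = 0.208). Col3a1 had 197, 1068, 682, 328 and 279 in P/Rbf against 909, 5394, 2193, 965 and 904 CPM in B1/P (log2 FC −2.02, SE 0.66, adjusted p = 0.0398). B1/P tumor 225070 had the most of both chains, and without it the median of the list moved from −1.06 to −0.69 and 2 members were called, as were 2 without P/Rbf tumors 287842, 287822 or 290845. The call of Col3a1 ended without B1/P tumors 225070 or 246361 or P/Rbf tumors 287842, 290860, 287822 or 290845 (adjusted p up to 0.136) and with the library-set term. Col11a1, a minor chain of cartilage fibrils, had 3.13, 22.6, 11.3, 11.7 and 2.25 in P/Rbf against 144, 25.3, 51.6, 340.5 and 144 CPM in B1/P (log2 FC −3.79, SE 0.84, adjusted p = 0.00587). Col2a1, the major collagen of cartilage, had 0.46, 0.883, 0.531, 0.0263 and 0.136 in P/Rbf against 386, 101, 16.8, 24.8 and 2.71 CPM in B1/P (log2 FC −8.02, SE 1.24, adjusted p = 0.000811, or log2 FC −6.46 without 225068). Both cartilage chains were lower in every P/Rbf tumor than in any B1/P tumor, and their calls stayed with the library-set term.

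Markers of fibroblasts, from a list that shares Col1a1, Col1a2, Col3a1, Postn and Fbln1 with the matrix lists, moved with these genes. Of 14 markers, 0 were called higher and 8 lower by edgeR (9 at an unadjusted p below 0.05), and their summed level ran from 1564 to 4503 CPM in P/Rbf tumors and from 3339 to 14050 CPM in B1/P tumors, where tumor 225070 was highest. The lower calls numbered 3 without tumor 225070 or P/Rbf tumors 287842 or 290845, 4 without 246361 and 5 without 290860 or 287822. Pdgfra, a fibroblast receptor that some basal tumor cells also express, had 6.93, 13.8, 19.6, 4.16 and 12.6 in P/Rbf against 181, 55.1, 53.7, 122 and 179 CPM in B1/P (log2 FC −3.38, SE 0.79, adjusted p = 0.00801), while Dpt, a defining fibroblast gene, had 0.443 to 7.76 against 5.56 to 91.8 CPM (log2 FC −3.34, SE 1.10, adjusted p = 0.0432, or log2 FC −1.74 without 225070). The call of Dpt ended without 225070, 246361, 287842, 290860, 287822 or 290845 (adjusted p up to 0.199) and with the library-set term. The part of fibroblast content in the matrix differences was not tested. DESeq2 and limma-voom did not call Dpt.

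Basement membrane genes had 9 of 23 members called lower and 1 higher (median −0.83). Col4a1, a chain of the type IV collagen network (chromosome 8, 11198423 to 11312826), had 240.2, 412, 249, 500 and 245 in P/Rbf against 1514, 1005, 1690, 1588 and 1523 CPM in B1/P (log2 FC −2.15, SE 0.29, adjusted p = 0.000313). The groups were far apart, and B1/P tumor 225070, rich in stromal collagens, had the least of it among B1/P tumors. Col4a6, a chain found beneath epithelia, had 0.403, 3.22, 0.709, 1.26 and 0.136 in P/Rbf against 156, 183, 128, 47.3 and 91.5 CPM in B1/P (log2 FC −6.72, SE 1.18, adjusted p = 0.0016). Lama4, a laminin chain of vessels and of stroma, had 19.9 to 51.1 against 123 to 299 CPM (log2 FC −2.60, SE 0.32, adjusted p = 0.000194). Lama2 had 1.79 to 4.61 against 10.2 to 27.4 CPM (log2 FC −2.50, SE 0.38, adjusted p = 0.00069). Lama1 had 0.633, 4.35, 2.61, 1.29 and 0.443 in P/Rbf against 4.89, 3.52, 162, 2.99 and 32.8 CPM in B1/P (log2 FC −4.46, SE 1.12, adjusted p = 0.0115, or log2 FC −2.56 without 246361), where tumors 246361 and 248662 carried most of the B1/P level. Without 246361 Lama1 was not called (log2 FC −2.56, adjusted p = 0.0544), nor was it with the library-set term. Lama5 went the other way, with 627, 1701, 445, 737 and 860.2 CPM in P/Rbf against 537, 322, 327, 239 and 217 CPM in B1/P tumors (log2 FC 1.41, SE 0.34, adjusted p = 0.00992). This laminin chain is typical of epithelial basement membranes, and P/Rbf tumor 287845 had the most of it. Lamb3, a chain of the laminin that anchors basal cells, had 19.3 to 285 against 71.1 to 268 CPM and was not called (log2 FC 0.16, SE 0.47, adjusted p = 0.837). Col17a1, a hemidesmosome collagen of basal cells, had 1.81, 20.1, 60.4, 9.21 and 6.57 in P/Rbf against 469, 0.829, 656, 409 and 438 CPM in B1/P (log2 FC −4.33, SE 1.32, adjusted p = 0.0297, or log2 FC −5.38 without 290860), with B1/P tumor 225070 below every P/Rbf tumor. The call of Col17a1 ended without B1/P tumor 246361 or P/Rbf tumors 287842, 287845, 287822 or 290845 (adjusted p up to 0.0668) and with the library-set term. Hspg2, the basement membrane proteoglycan perlecan, had 89.1 to 644 against 194 to 505 CPM and was not called (log2 FC −0.76, SE 0.49, adjusted p = 0.279), but was called without P/Rbf tumor 287845 (log2 FC −1.62, adjusted p = 0.00856). Col17a1 and Lama1 were not called by limma-voom.

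**Figure D3:**
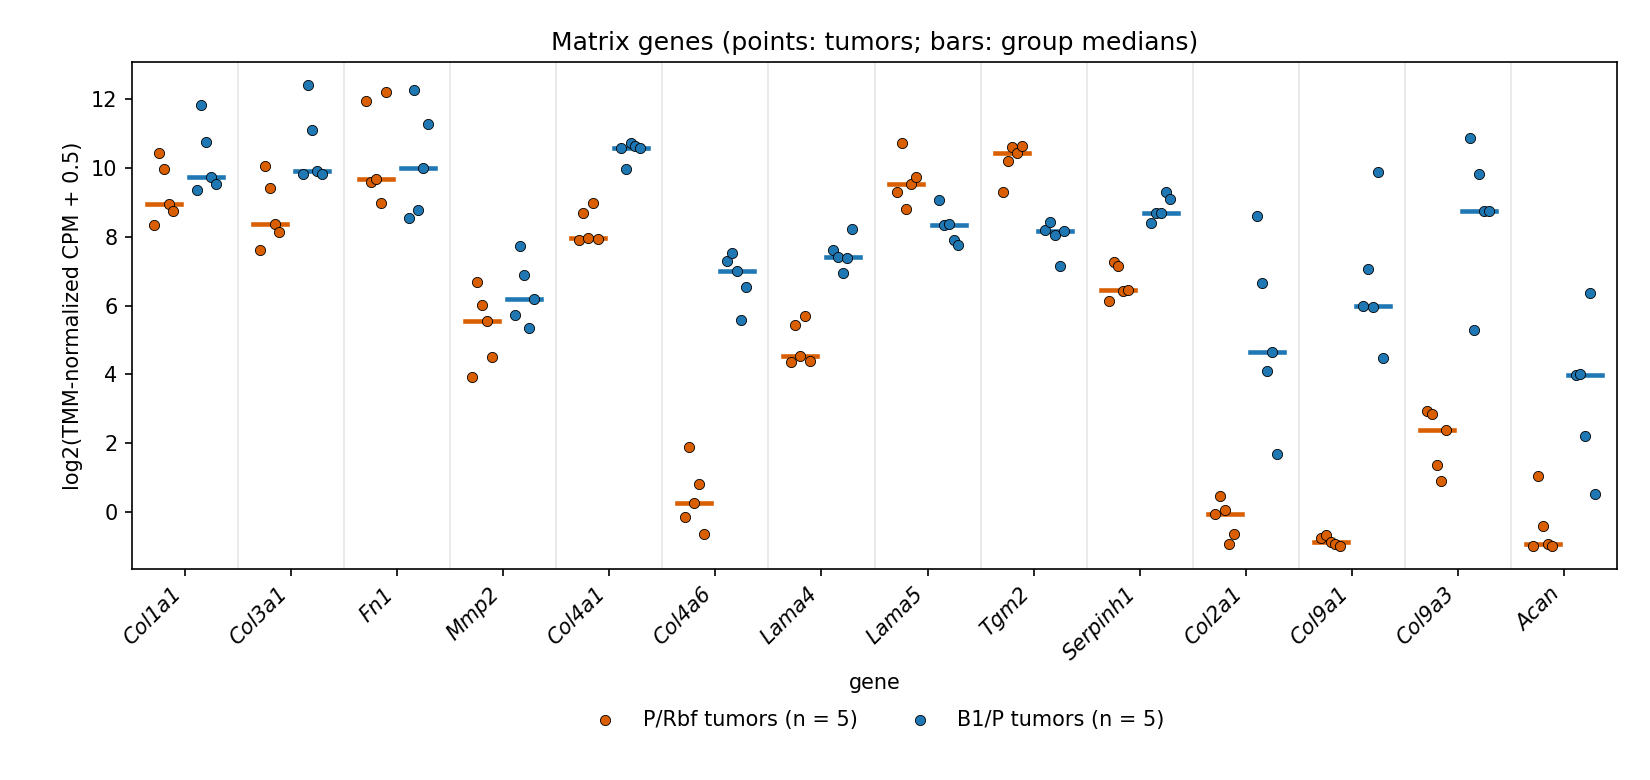
Matrix genes in each tumor. Points give CPM on a log2 axis (after adding 0.5) for single P/Rbf (orange) and B1/P (blue) tumors, and bars give group medians. Col4a1, Serpinh1, Col9a1, Col9a3 and Col2a1 do not overlap between the groups, Lama5 leans the other way, and Fn1, Col1a1 and Mmp2 overlap widely.

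Cartilage genes had one of the lowest medians of all lists. Of 19 tested, 11 were called lower and 0 higher by edgeR (12 at an unadjusted p below 0.05, and 0 higher in DESeq2 or limma-voom), with a median log2 fold change of −3.79, and −4.57 with the library-set term. Type IX collagen, which coats cartilage fibrils, was lower in all 3 of its chains. Col9a1 had 0.0863, 0.126, 0.0506, 0.0263 and 0 in P/Rbf against 62.6, 134, 62.1, 943 and 21.8 CPM in B1/P (log2 FC −11.96, SE 1.43, adjusted p = 0.000159, or log2 FC −10.16 without 255232). For Col9a3 the values were 7.22, 6.69, 2.10, 1.37 and 4.73 CPM in P/Rbf against 1866, 38.5, 903, 431 and 434 CPM in B1/P tumors (log2 FC −7.38, SE 0.84, adjusted p = 0.000113). The third chain, Col9a2, had 0.0288 to 1.20 against 7.04 to 68.8 CPM (log2 FC −6.72, SE 0.85, adjusted p = 0.000199). Acan, the aggregating proteoglycan of cartilage, had 0, 1.58, 0.253, 0.0263 and 0 in P/Rbf against 15.2, 15.8, 4.12, 81.6 and 0.946 CPM in B1/P (log2 FC −5.98, SE 1.55, adjusted p = 0.0155, or log2 FC −8.25 without 287845). Snorc, a small cartilage proteoglycan, had 0.0288, 0.221, 0.101, 0 and 0.034 in P/Rbf against 119.5, 0.474, 12.2, 112 and 113 CPM in B1/P (log2 FC −9.81, SE 1.56, adjusted p = 0.000888). Cnmd, chondromodulin, had 0 to 0.0631 against 0.118 to 48.8 CPM, 1167-fold lower (95% interval 323 to 9641) and 475-fold lower (131 to 3928) without B1/P tumor 225068. No single B1/P tumor accounted for the list, since 255232 had the most Col9a1 and Acan, 225068 the most Col2a1, Col9a3 and Snorc, and 225070 the least Snorc and Cnmd. Normal glands had 1.54 ± 0.76 CPM of Col9a1 and 5.30 ± 2.51 CPM of Col9a3 (SD, n = 3). B1/P/Rbf tumors had 0.218 ± 0.337 CPM of Col9a1 and 3.21 ± 0.561 CPM of Col9a3 (SD, n = 5).

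Among the other collagens, a list that includes Col9a1 to Col9a3 and Col17a1, 12 of 23 were called lower and 0 higher (14 at an unadjusted p below 0.05), with a median of −1.95. Matrix glycoproteins had 14 of 43 called lower, 0 higher and a median of −1.26, and without B1/P tumor 225070 the median was −0.71, with 12 called lower and 1 higher. Matn4, a matrilin, had 0 to 0.442 against 1.06 to 406 CPM (log2 FC −9.42, SE 1.76, adjusted p = 0.00236, or log2 FC −5.89 without 225068). Thbs4, a thrombospondin, had 0.834 to 3.75 against 5.04 to 64.8 CPM (log2 FC −3.42, SE 0.76, adjusted p = 0.00614). Mgp, matrix Gla protein, an inhibitor of mineralization, had 6.64 to 156 against 154 to 1300 CPM (log2 FC −3.34, SE 0.82, adjusted p = 0.0101, or log2 FC −4.59 without 287845), a call that ended with the library-set term. Fn1, fibronectin, was not called, with 3947, 766, 826, 504 and 4703 CPM in P/Rbf against 371, 4895, 437, 1013 and 2476 CPM in B1/P tumors (log2 FC 0.23, SE 0.70, adjusted p = 0.85). Both groups held tumors with much and with little Fn1. Sparc, which binds collagen, had 283 to 1271 against 786 to 2133 CPM (log2 FC −1.01, SE 0.43, adjusted p = 0.104). Tnc, tenascin C, had 132 to 340.5 against 114 to 1642 CPM (log2 FC −1.01, SE 0.62, adjusted p = 0.259). Neither was called, but Sparc was called without P/Rbf tumor 287845 (log2 FC −1.40, adjusted p = 0.0301) and by limma-voom (adjusted p = 0.0403). Of 27 proteoglycan and hyaluronan genes, 6 were called lower and 1 higher (median −1.29). The glypicans Gpc3, with 0.0288 to 4.08 against 16.6 to 138 CPM (log2 FC −5.44, SE 0.93, adjusted p = 0.00136), and Gpc6, with 0.477 to 2.40 against 11.8 to 42.6 CPM (log2 FC −4.31, SE 0.56, adjusted p = 0.000233), were lower without overlap. Sdc1, a syndecan of epithelial cells, had 508, 2409, 1016, 717 and 699.5 in P/Rbf against 242, 568, 543, 123 and 437 CPM in B1/P (log2 FC 1.48, SE 0.43, adjusted p = 0.0231). This call was lost without B1/P tumor 225068 (log2 FC 1.36, adjusted p = 0.0536), without P/Rbf tumor 287845 (log2 FC 0.94, adjusted p = 0.0745) and with the library-set term. Thbs4 was not called by limma-voom.

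Enzymes that fold and crosslink collagen had 6 of 28 members called lower and 2 higher (median −0.55). Serpinh1, the collagen chaperone HSP47, had 69.9, 152, 141, 85.9 and 87.7 in P/Rbf against 335, 413, 414, 630 and 549.7 CPM in B1/P (log2 FC −2.12, SE 0.31, adjusted p = 0.000554). The prolyl 3-hydroxylases P3h1, with 5.03 to 13.0 against 25.7 to 39.2 CPM (log2 FC −2.08, SE 0.43, adjusted p = 0.00387), P3h2, with 0.632 to 6.67 against 9.28 to 91.5 CPM (log2 FC −3.75, SE 0.84, adjusted p = 0.00641), and P3h3, with 6.71 to 15.3 against 24.5 to 70.7 CPM (log2 FC −2.21, SE 0.36, adjusted p = 0.00107), were all lower without overlap. Tgm2, a transglutaminase that links matrix proteins, had 629, 1172, 1550, 1384 and 1580 in P/Rbf against 294, 342, 264, 141 and 289 CPM in B1/P (log2 FC 2.25, SE 0.41, adjusted p = 0.00196). No P/Rbf tumor was as low as any B1/P tumor, and B1/P/Rbf tumors had 2233 ± 788 CPM (SD, n = 5). Lox, with 20.6 to 72.8 against 33.5 to 328 CPM (log2 FC −1.54, SE 0.59, adjusted p = 0.0742), and Loxl2, with 35.0 to 469 against 59.0 to 255 CPM (log2 FC 0.16, SE 0.62, adjusted p = 0.881), which both crosslink collagen by lysine oxidation, were not called. Lox was called without B1/P tumor 248662 (log2 FC −1.77, adjusted p = 0.0452) or P/Rbf tumor 290860 (log2 FC −1.90, adjusted p = 0.0466) and by DESeq2 (adjusted p = 0.0348).

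Proteases and their inhibitors had 7 of 41 called lower and 2 higher (median −0.41), beside 10.8% and 8.43% of all genes. The collagenase activator Mmp14 had 322 to 634 against 218 to 362 CPM (log2 FC 0.60, SE 0.24, adjusted p = 0.0881). The gelatinase Mmp2 had 14.6 to 102 against 39.9 to 210.1 CPM (log2 FC −0.98, SE 0.57, adjusted p = 0.232). Neither was called. Serpine2, a serine protease inhibitor, had 60.1, 53.7, 195, 30.8 and 69.1 in P/Rbf against 487, 356, 667, 582 and 919.6 CPM in B1/P (log2 FC −2.88, SE 0.45, adjusted p = 0.000842). Hpse, the heparan sulfate cleaving heparanase, and its inactive relative Hpse2 went in opposite directions. Hpse had 8.43 to 48.1 against 2.38 to 17.5 CPM (log2 FC 1.89, SE 0.57, adjusted p = 0.0288). Hpse2 had 0.259, 0.0631, 0, 0.0263 and 0 in P/Rbf against 30.3, 6.52, 0.704, 41.8 and 38.9 CPM in B1/P (log2 FC −8.33, SE 1.19, adjusted p = 0.000485, or log2 FC −9.82 without 287842). The call of Hpse ended without B1/P tumors 225068, 255232 or 248662 or P/Rbf tumors 287845, 287822 or 290845 (adjusted p up to 0.0625), while that of Hpse2 held without each tumor. The proteoglycan-cleaving Adamts5 had 1.01 to 5.42 against 4.64 to 98.8 CPM (log2 FC −3.82, SE 0.88, adjusted p = 0.00727). Adamts15 had 3.64 to 54.7 against 45.5 to 373 CPM (log2 FC −2.75, SE 0.71, adjusted p = 0.0135), a call that ended with the library-set term. The median of the list was 0.23 with the library-set term and 0.03 without B1/P tumor 225070, where 6 were called higher and 7 lower, and in the second set alone 5 were higher and 6 lower.

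Integrin chains had 5 of 20 called lower, 2 higher and a median of −0.02. It was positive with the study's strict filter (0.17, 9 tested), for the 10 tumors alone (0.02) and in both library-set fits (0.43). It was so without B1/P tumor 225070 (0.26) or P/Rbf tumors 287842, 290860, 287822 or 290845 (0.03 to 0.12). It was −0.87 without 287845 and −0.18 without 225068. Itga8, with 0.715 to 3.27 against 15.3 to 44.0 CPM (log2 FC −4.33, SE 0.51, adjusted p = 0.000147), Itgb8, with 0.374 to 6.19 against 13.9 to 88.4 CPM (log2 FC −4.56, SE 0.75, adjusted p = 0.00107), and Itga9, with 8.28 to 16.0 against 22.7 to 168 CPM (log2 FC −2.46, SE 0.43, adjusted p = 0.00149), were lower without overlap. Itga1, a collagen receptor chain, had 13.7 to 31.2 against 39.7 to 71.2 CPM (log2 FC −1.10, SE 0.31, adjusted p = 0.0199). Itga1 was not called without B1/P tumor 246361 (log2 FC −0.90, adjusted p = 0.0563) or P/Rbf tumor 287842 (log2 FC −0.95, adjusted p = 0.0533). Itgb4, the hemidesmosome chain, had 467, 308, 202, 133 and 226 in P/Rbf against 585, 369.9, 635, 498 and 635 CPM in B1/P (log2 FC −1.03, SE 0.26, adjusted p = 0.0131), while its partner Itga6 had 266 to 675 against 108 to 454 CPM and was not called (log2 FC 0.54, SE 0.34, adjusted p = 0.272). Itgb6, the chain that activates latent TGF-beta, had 31.3, 13.4, 26.8, 4.00 and 36.6 in P/Rbf against 4.39, 3.61, 4.83, 10.3 and 4.86 CPM in B1/P (log2 FC 2.00, SE 0.58, adjusted p = 0.0247). Its call ended without B1/P tumors 225068 or 246361 or P/Rbf tumor 290845 (adjusted p up to 0.0609). Itgb3 had 26.2 to 245 against 22.0 to 192 CPM and was not called (log2 FC 0.15, SE 0.68, adjusted p = 0.896). The calls of Itga1, Itgb4 and Itgb6 ended with the library-set term. limma-voom did not call Itgb6.

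TGF-beta family genes had 5 of 25 called lower and 1 higher, with a median of 0.07, which was negative with limma-voom (−0.09), without TMM scaling (−0.03) and without P/Rbf tumor 287845 (−0.10). Bmp7, a bone morphogenetic protein, had 2.96, 3.03, 4.63, 1.79 and 3.78 in P/Rbf against 195, 0.859, 101, 170.5 and 209 CPM in B1/P (log2 FC −5.38, SE 0.89, adjusted p = 0.0011). Tumor 225070 was below every P/Rbf tumor, and the other 4 B1/P tumors were all at or above 101 CPM. Fst, follistatin, an activin antagonist, had 1.35 to 6.02 against 33.2 to 153 CPM (log2 FC −4.52, SE 0.76, adjusted p = 0.00128). The ligand Tgfb2 had 2.50 to 7.85 against 11.2 to 44.8 CPM (log2 FC −2.35, SE 0.50, adjusted p = 0.0045). The coreceptor Tgfbr3 had 1.05 to 21.2 against 28.7 to 349.9 CPM (log2 FC −4.29, SE 0.97, adjusted p = 0.00664, or log2 FC −5.34 without 287822). These 3 did not overlap between the groups. Tgfbr1, the type I receptor, had 78.7, 459, 222, 383 and 277 in P/Rbf against 56.2, 154, 75.4, 84.5 and 96.1 CPM in B1/P (log2 FC 1.61, SE 0.37, adjusted p = 0.00755), a call that ended with the library-set term. limma-voom did not call Bmp7.

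Over the 14 metabolic lists, counting each gene once, 75 of 415 genes were called, a share near the 19.2% of all genes, of which 47 were higher and 28 lower, with a median log2 fold change of 0.19. For glucose uptake and glycolysis, 3 of 30 genes were called higher and 3 lower (median 0.34). In both library-set fits 1 was called higher and 2 lower, and without P/Rbf tumor 287845 the median was −0.07. Pkm, pyruvate kinase (chromosome 9, 59656368 to 59679375), had 3832, 4535, 3172, 2370 and 3932 in P/Rbf against 1898, 2038, 1499, 1850 and 1350 CPM in B1/P (log2 FC 1.05, SE 0.21, adjusted p = 0.00336). The groups did not overlap, and the call held without each tumor and with the library-set term. The glucose transporter Slc2a3 had 1.41, 3.50, 2.02, 2.11 and 2.04 in P/Rbf against 65.7, 14.0, 7.34, 89.9 and 12.2 CPM in B1/P (log2 FC −4.09, SE 0.77, adjusted p = 0.00248). By contrast, Slc2a1 had 89.3 to 722 against 113 to 390.1 CPM and was not called (log2 FC 0.33, SE 0.46, adjusted p = 0.646). Ldha, which makes lactate, had 903 to 1743 against 365 to 1231 CPM (log2 FC 0.69, SE 0.28, adjusted p = 0.0937). Hk2, a hexokinase, had 76.0 to 231 against 58.7 to 149 CPM (log2 FC 0.30, SE 0.34, adjusted p = 0.567). Neither was called. The fructose bisphosphatases went in opposite directions. Fbp1 had 3.13, 0.0631, 3.69, 0.816 and 1.63 in P/Rbf against 11.8, 1.10, 56.2, 85.8 and 31.2 CPM in B1/P (log2 FC −4.31, SE 1.20, adjusted p = 0.0195). Fbp2 had 12.2, 0.221, 76.7, 0.342 and 62.0 in P/Rbf against 0.0636, 0.296, 0.628, 0.148 and 0.504 CPM in B1/P (log2 FC 6.50, SE 1.59, adjusted p = 0.0101), where 3 P/Rbf tumors exceeded the whole B1/P group and the other 2 inside the B1/P range. Pck2, the mitochondrial enzyme that makes phosphoenolpyruvate, had 160.3, 58.8, 87.0, 138 and 145 in P/Rbf against 32.6, 48.8, 62.2, 36.9 and 69.2 CPM in B1/P (log2 FC 1.24, SE 0.29, adjusted p = 0.00824). The calls of Fbp2 and Pck2 ended with the library-set term. limma-voom called neither Fbp1 nor Fbp2.

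Of 20 hypoxia response genes, edgeR called 2 higher and 0 lower, beside 8.43% and 10.8% of all genes. Unadjusted p was below 0.05 for 5, and DESeq2 and limma-voom called 0 lower. Hif1a, the oxygen-regulated subunit of the hypoxia factor, had 281, 349.5, 297, 176 and 552 in P/Rbf against 190.5, 192, 117, 128 and 166 CPM in B1/P (log2 FC 1.06, SE 0.32, adjusted p = 0.0302). Its call ended without 246361, 255232 or 290845 (adjusted p up to 0.0944). Car9, a carbonic anhydrase that hypoxia induces, had 118, 31.3, 138, 14.5 and 90.7 in P/Rbf against 5.56, 16.7, 1.00, 10.2 and 5.71 CPM in B1/P (log2 FC 3.32, SE 0.96, adjusted p = 0.0239). Without 225068 it was not called (log2 FC 3.22, adjusted p = 0.0515). Pdk1, which slows pyruvate oxidation, had 79.7 to 259 against 59.6 to 153 CPM and was not called (log2 FC 0.40, SE 0.35, adjusted p = 0.428). The calls of Hif1a and Car9 ended with the library-set term. limma-voom did not call Hif1a.

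Enzymes that supply NADPH through the pentose phosphate route were called higher in 3 of 17 cases and lower in 0. Over all genes 8.43% were higher and 10.8% lower. Pgd, the second oxidative enzyme, had 249.9, 169, 283, 192 and 249.5 in P/Rbf against 98.9, 140.2, 74.8, 74.0 and 95.5 CPM in B1/P (log2 FC 1.24, SE 0.33, adjusted p = 0.0154). G6pdx, the first, had 148, 75.4, 207, 127 and 319.5 in P/Rbf against 62.6, 98.9, 102, 71.3 and 81.4 CPM in B1/P (log2 FC 1.07, SE 0.33, adjusted p = 0.0313). H6pd, its counterpart in the endoplasmic reticulum, had 74.9 to 617 against 53.4 to 132 CPM (log2 FC 1.78, SE 0.47, adjusted p = 0.0142). The call of G6pdx ended without B1/P tumors 225068, 255232 or 248662 or P/Rbf tumors 290860 or 290845 (adjusted p up to 0.105). In the pyruvate oxidation and TCA cycle list 7 of 31 were called higher and 0 lower by edgeR, 11 had an unadjusted p below 0.05, limma-voom called 4 higher and 1 lower, and without B1/P tumor 255232, 4 were higher. Fh1, fumarase, had 78.6, 143, 80.3, 438 and 79.7 in P/Rbf against 65.6, 60.6, 56.1, 46.8 and 53.3 CPM in B1/P (log2 FC 1.54, SE 0.40, adjusted p = 0.0136), with P/Rbf tumor 287822 far above the rest. Sucla2, a succinyl-CoA ligase subunit, had 42.8, 71.8, 62.6, 64.2 and 58.8 in P/Rbf against 32.7, 33.1, 41.7, 31.9 and 33.0 CPM in B1/P (log2 FC 0.80, SE 0.19, adjusted p = 0.00827). Sdhb, a succinate dehydrogenase subunit, had 70.0 to 105 against 42.2 to 72.3 CPM (log2 FC 0.91, SE 0.27, adjusted p = 0.0266). Its call ended without B1/P tumors 225068, 246361 or 255232 or P/Rbf tumor 290860 (adjusted p up to 0.0567). The calls of Pgd, G6pdx, Fh1 and Sdhb ended with the library-set term, and that of Sucla2 did not. limma-voom did not call G6pdx or Fh1.

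Nuclear genes of respiratory complexes I to V were called higher in 10 of 81 cases and lower in 1, with 64 of 81 positive and a median log2 fold change of 0.26. Those called, 11 in all, were a smaller share than the 19.2% over all genes (8.43% higher). The balance turned with the library-set term (2 higher, 4 lower) and in the second set alone (2 higher, 5 lower), with a median of 0.18 in both. Without B1/P tumor 225068, 6 were higher, without TMM scaling 7 higher and 3 lower, and DESeq2 called 23 higher and 3 lower. Cox5a, a subunit of cytochrome oxidase, had 107, 105, 97.0, 91.5 and 101 in P/Rbf against 36.3, 58.7, 40.9, 59.5 and 45.3 CPM in B1/P (log2 FC 1.06, SE 0.19, adjusted p = 0.00213). It varied little within the groups, and all P/Rbf tumors lay above all B1/P tumors. Cox7a2 had 104 to 158 against 30.2 to 97.1 CPM (log2 FC 1.05, SE 0.27, adjusted p = 0.0129), a call that ended with the library-set term, unlike that of Cox5a. Cox4i2, an isoform of hypoxic and lung tissue, was the member called lower, with 0.102 to 1.67 against 1.19 to 27.9 CPM (log2 FC −3.97, SE 0.77, adjusted p = 0.0027). The 13 protein genes of the mitochondrial genome were not called in either direction by edgeR, DESeq2 or limma-voom, with 0 at an unadjusted p below 0.05 and a median of −0.16. Without P/Rbf tumor 290860, whose sum over these genes (35080 CPM) was the highest of its group, edgeR called 3 lower and the median was −0.50. Normal glands, whose summed markers ran from 23070 to 29290 CPM for fat and from 30350 to 60060 CPM for skeletal muscle, had 245 ± 31.8 CPM of Cox5a (SD, n = 3), more than both tumor groups. Ppargc1a, a coactivator of mitochondrial genes, had 5.44, 231, 1.24, 138 and 1.94 in P/Rbf against 31.9, 17.6, 7.19, 23.6 and 17.7 CPM in B1/P and was not called (log2 FC 1.95, SE 1.18, adjusted p = 0.253). P/Rbf tumors 287845 and 287822 were above and the other 3 P/Rbf tumors below every B1/P tumor.

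**Figure D4:**
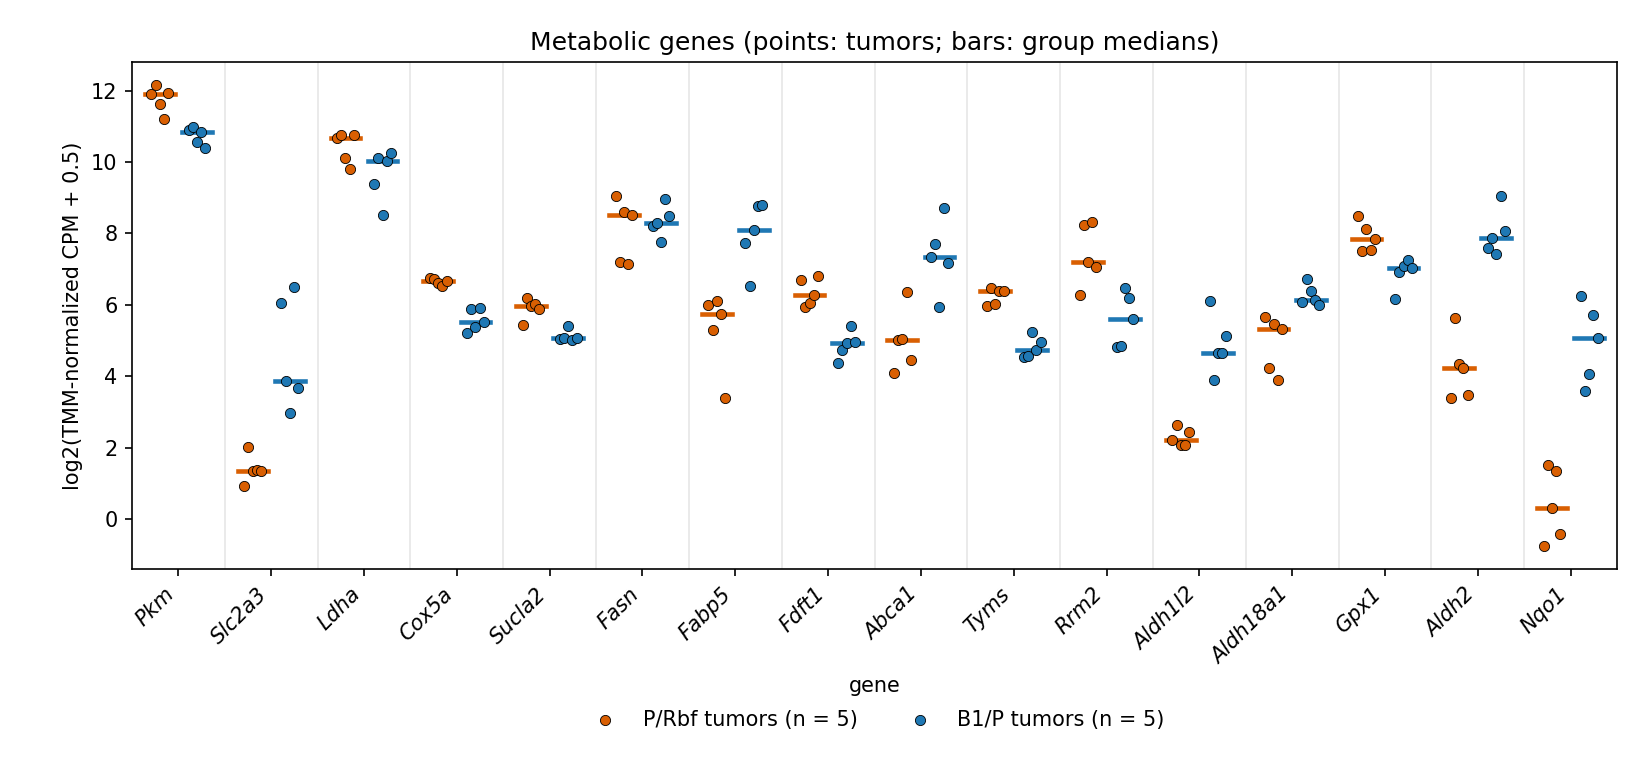
Metabolic genes in each tumor. Points give CPM on a log2 axis (after adding 0.5) for single P/Rbf (orange) and B1/P (blue) tumors, and bars give group medians. Pkm, Tyms, Fdft1 and Cox5a of P/Rbf tumors lie above and Slc2a3, Fabp5, Aldh1l2, Aldh2 and Nqo1 below every B1/P tumor, while Fasn and Ldha overlap.

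Fatty acid and triglyceride synthesis had 5 of 31 genes called lower and 1 higher, with a median of 0.03. The median was negative with limma-voom and without TMM scaling (both −0.05), with the strict filter (−0.10), in both library-set fits (−0.20), and without B1/P tumors 225070, 246361 or 248662 or P/Rbf tumors 287842 or 287845 (−0.12 to −0.04), and 3 members were called lower without B1/P tumor 225068 or P/Rbf tumor 290845 and 0 in the fit of the 10 tumors. The main synthetic enzymes were not called. Fasn, fatty acid synthase, had 531, 148, 388, 142 and 363 in P/Rbf against 296, 312, 216, 498 and 356 CPM in B1/P (log2 FC −0.09, SE 0.36, adjusted p = 0.88). Acly, which supplies cytosolic acetyl-CoA, had 178 to 405 against 141 to 372 CPM (log2 FC 0.03, SE 0.38, adjusted p = 0.964). Scd1, a desaturase, had 118 to 2306 against 309 to 1159 CPM (log2 FC 0.39, SE 0.64, adjusted p = 0.699). Normal glands had 6236 ± 2298 CPM of Fasn and 16300 ± 4216 CPM of Scd1 (SD, n = 3). The desaturase Fads2, which makes polyunsaturated chains, had 69.8, 12.4, 35.3, 6.90 and 65.5 in P/Rbf against 199.7, 66.9, 123, 191 and 193 CPM in B1/P (log2 FC −2.03, SE 0.54, adjusted p = 0.016). Acacb, an acetyl-CoA carboxylase, had 1.57 to 8.50 against 3.14 to 36.1 CPM (log2 FC −2.08, SE 0.53, adjusted p = 0.012). In fatty acid uptake and oxidation 5 of 37 were called lower and 2 higher (median −0.06, and positive, up to 0.06, with the strict filter, in both library-set fits and without B1/P tumors 225068, 225070 or 246361 or P/Rbf tumor 290860). Fabp5, an epidermal fatty acid binding protein, had 63.8, 39.0, 68.4, 53.04 and 9.97 in P/Rbf against 211, 91.5, 273, 436 and 446 CPM in B1/P (log2 FC −2.64, SE 0.55, adjusted p = 0.00437). Cd36, a fatty acid transporter, had 2.35 to 5.64 against 7.84 to 20.1 CPM (log2 FC −1.87, SE 0.52, adjusted p = 0.0191). Fabp4, shared with the adipocyte list, had 2.71 to 8.61 against 20.6 to 44.5 CPM (log2 FC −2.44, SE 0.67, adjusted p = 0.0177). Cpt1a, which carries fatty acids into mitochondria, had 115 to 477 against 98.6 to 233 CPM and was not called (log2 FC 0.76, SE 0.34, adjusted p = 0.122). Of 12 adipocyte markers, Fabp4 was the 1 called, and their summed levels ran from 45.9 to 128 CPM in P/Rbf tumors and from 66.8 to 133 CPM in B1/P tumors. Without P/Rbf tumor 290860, 2 of these markers were called higher and 1 lower. The calls of Acacb and Cd36 ended with the library-set term. limma-voom did not call Acacb or Cd36.

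Cholesterol synthesis and uptake gave 2 of 30 called higher and 2 lower (median 0.44). By DESeq2 and without B1/P tumor 255232 or P/Rbf tumor 287822, 4 were called higher, and with limma-voom and in both library-set fits 1 was. Fdft1, squalene synthase, had 103, 60.3, 66.3, 77.4 and 112 in P/Rbf against 20.3, 25.98, 29.8, 41.5 and 30.5 CPM in B1/P (log2 FC 1.503, SE 0.26, adjusted p = 0.00142). The exporter Abca1 had 16.4, 31.6, 32.6, 81.0 and 21.6 in P/Rbf against 162, 207, 61.2, 421 and 145 CPM in B1/P (log2 FC −2.44, SE 0.48, adjusted p = 0.00313). The lipoprotein receptor Scarb1 had 44.7 to 94.8 against 79.1 to 242 CPM (log2 FC −1.15, SE 0.27, adjusted p = 0.00847). Fdft1, Abca1 and Scarb1 were called also with the library-set term.

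Nucleotide synthesis genes leaned the same way as the replication genes, with 7 of 28 called higher, 0 lower and a median of 0.37. The higher calls numbered 3 without B1/P tumors 246361 or 248662 and in the fit of the 10 tumors, and 4 without B1/P tumor 225068 or P/Rbf tumor 290845. None was called lower by DESeq2 or limma-voom, and 11 had an unadjusted p below 0.05. Tyms, thymidylate synthase, had 61.8, 87.4, 64.4, 82.8 and 83.4 in P/Rbf against 22.6, 23.2, 37.5, 25.9 and 30.5 CPM in B1/P (log2 FC 1.44, SE 0.18, adjusted p = 0.000211). Rrm2, the regulated subunit of ribonucleotide reductase, had 77.2, 299, 145, 322 and 132 in P/Rbf against 27.8, 28.5, 88.8, 73.0 and 48.1 CPM in B1/P (log2 FC 1.87, SE 0.39, adjusted p = 0.00406). The groups did not overlap in Tyms, and in Rrm2 P/Rbf tumor 287842 lay within the B1/P range. Tyms stayed called with the library-set term, as the only member of the list, and Rrm2 did not.

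Serine, glycine and one-carbon genes gave 4 of 22 called higher and 2 lower. Counts were 2 and 2 without B1/P tumors 225068, 225070 or 246361 or P/Rbf tumor 290845 and at 1 and 1 in the fit of the 10 tumors, and in both library-set fits 1 was called higher and 2 lower. Phgdh, the first enzyme of serine synthesis, had 317, 68.4, 187, 25.6 and 344 in P/Rbf against 34.5, 60.1, 59.4, 82.9 and 75.2 CPM in B1/P (log2 FC 1.59, SE 0.50, adjusted p = 0.0334), with P/Rbf tumors 287845 and 287822 low. Its call ended without B1/P tumors 225068, 225070 or 246361, without P/Rbf tumors 287842 or 290845 (adjusted p up to 0.0954) and with the library-set term. Of the next enzymes of the pathway, Psat1 had 33.6 to 81.1 against 45.7 to 118 CPM and was not called (log2 FC −0.53, SE 0.38, adjusted p = 0.331) and Psph had 9.84 to 26.7 against 17.0 to 64.3 CPM (log2 FC −1.26, SE 0.36, adjusted p = 0.0234). Without B1/P tumor 248662 (log2 FC −1.10, adjusted p = 0.0549) or P/Rbf tumor 287822 (log2 FC −1.10, adjusted p = 0.0522) the call of Psph ended. Aldh1l2, a mitochondrial folate enzyme, had 4.14, 5.68, 3.72, 3.74 and 4.94 in P/Rbf against 68.2, 14.5, 24.5, 24.5 and 34.2 CPM in B1/P (log2 FC −2.90, SE 0.43, adjusted p = 0.000629). Every P/Rbf tumor lay below every B1/P tumor, and the call held without each tumor. limma-voom did not call Phgdh.

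Glutamine, aspartate and amino acid transport genes had 5 of 32 called lower and 2 higher. The count was 2 lower and 2 higher without P/Rbf tumor 287842, 3 and 3 without P/Rbf tumor 290860, 3 lower without B1/P tumors 255232 or 248662 or P/Rbf tumors 287822 or 290845, and 0 in the fit of the 10 tumors. Got1, the cytosolic aspartate aminotransferase, had 25.8, 515, 20.4, 353 and 23.4 in P/Rbf against 13.9, 35.2, 13.4, 15.6 and 21.8 CPM in B1/P (log2 FC 3.23, SE 0.82, adjusted p = 0.0123). P/Rbf tumors 287845 and 287822 lay far above, and the other 3 P/Rbf tumors lay within the B1/P range. Aldh18a1, the first enzyme of proline synthesis, had 49.7, 18.4, 43.9, 14.3 and 39.1 in P/Rbf against 67.1, 105, 83.4, 69.1 and 63.6 CPM in B1/P (log2 FC −1.23, SE 0.31, adjusted p = 0.0113). Pycr1, the last, had 3.63 to 10.1 against 13.0 to 39.2 CPM (log2 FC −1.22, SE 0.36, adjusted p = 0.0261). Both proline enzymes were lower without overlap, and the call of Pycr1 ended without B1/P tumor 255232 (log2 FC −0.78, adjusted p = 0.0887) or P/Rbf tumor 287842 (log2 FC −1.15, adjusted p = 0.0582). Glutamine synthetase and asparagine synthetase were not called, with 58.0 to 255 against 71.7 to 323 CPM for Glul (log2 FC −0.53, SE 0.47, adjusted p = 0.448) and 31.4 to 59.4 against 44.8 to 74.6 CPM for Asns (log2 FC −0.39, SE 0.21, adjusted p = 0.204). The cystine transporter Slc7a11 had 3.05 to 87.6 against 1.59 to 19.5 CPM (log2 FC 1.13, SE 0.98, adjusted p = 0.434). Ornithine decarboxylase, Odc1, had 121 to 262 against 50.1 to 169.5 CPM (log2 FC 0.64, SE 0.29, adjusted p = 0.131). In the arginine, polyamine and creatine list 2 of 20 were called higher and 1 lower. No more than 1, lower, was called with the library-set term and without B1/P tumors 225068 or 255232 or P/Rbf tumor 287842, and 0 without B1/P tumor 248662. Nos2, inducible nitric oxide synthase, had 331, 174, 110.5, 19.4 and 272 in P/Rbf against 10.5, 105, 6.76, 4.41 and 27.5 CPM in B1/P (log2 FC 2.56, SE 0.79, adjusted p = 0.0319, or log2 FC 3.89 without 225070), and this call ended without B1/P tumors 225068, 246361, 255232 or 248662 or P/Rbf tumors 287842 or 290845 (adjusted p up to 0.0678). Creatine kinase Ckb had 2.28 to 26.3 against 4.51 to 36.4 CPM and was not called (log2 FC −0.70, SE 0.59, adjusted p = 0.417). The calls of Got1, Aldh18a1 and Nos2 ended with the library-set term. limma-voom did not call Got1 or Pycr1.

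Glutathione and aldehyde detoxification split evenly, with 4 of 31 called higher and 4 lower (median −0.50). Gclc, which limits glutathione synthesis, had 93.6, 71.2, 68.7, 311 and 136 in P/Rbf against 41.3, 30.7, 55.4, 52.5 and 34.7 CPM in B1/P (log2 FC 1.66, SE 0.36, adjusted p = 0.0052). Gsr, which regenerates glutathione, had 106 to 630.2 against 91.3 to 174 CPM (log2 FC 1.56, SE 0.41, adjusted p = 0.0152). Gpx1, which uses it against peroxides, had 357, 182, 277, 185 and 228 in P/Rbf against 70.8, 120.5, 137, 154 and 131 CPM in B1/P (log2 FC 1.00, SE 0.25, adjusted p = 0.0103). Nqo1, a quinone reductase, had 0.0863, 2.33, 0.734, 2.05 and 0.238 in P/Rbf against 74.9, 11.5, 16.2, 51.9 and 32.9 CPM in B1/P (log2 FC −5.10, SE 0.87, adjusted p = 0.00133). Aldh2, the mitochondrial aldehyde dehydrogenase, had 9.92, 49.1, 19.7, 18.3 and 10.6 in P/Rbf against 192, 232, 170.4, 531 and 266 CPM in B1/P (log2 FC −3.69, SE 0.56, adjusted p = 0.000727). The glutathione transferases Gsta3, with 0.126 to 0.228 against 0.385 to 14.4 CPM (log2 FC −4.98, SE 0.77, adjusted p = 0.000804), and Gstm5, with 7.05 to 12.9 against 23.3 to 56.2 CPM (log2 FC −2.05, SE 0.34, adjusted p = 0.00122), were lower as well, and none of these 4 overlapped between the groups. With the library-set term the 4 lower members stayed called and the higher members, Srxn1 among them, did not. Aldh1a1, a retinal dehydrogenase used as a stem cell marker, had 1.01 to 97.1 against 2.58 to 64.2 CPM and was not called (log2 FC −0.50, SE 1.06, adjusted p = 0.775), but was called lower without P/Rbf tumor 287822 (log2 FC −3.63, adjusted p = 0.0102). limma-voom did not call Gsr.

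Markers of other cell types were measured as whole lists. Endothelial markers had 0 of 12 called by edgeR, with 0 at an unadjusted p below 0.05 and 0 called by DESeq2, and their summed level ran from 151 to 693 CPM in P/Rbf tumors and from 226 to 555 CPM in B1/P tumors. Without P/Rbf tumor 287822, 2 of them were called lower. Lymphocyte markers had 0 of 14 called by edgeR or DESeq2 and 0 at an unadjusted p below 0.05, with sums from 4.96 to 70.2 CPM and from 8.36 to 59.4 CPM. Macrophage markers had 2 of 12 called lower and 0 higher by edgeR (7 at an unadjusted p below 0.05, and 0 higher by DESeq2), with sums from 341 to 1062 CPM in P/Rbf tumors and from 487 to 3507 CPM in B1/P tumors. Mrc1, the mannose receptor, had 3.85 to 14.8 against 15.4 to 122 CPM (log2 FC −2.39, SE 0.68, adjusted p = 0.0223), a call that ended without B1/P tumor 225070 (log2 FC −1.67, adjusted p = 0.0689), without P/Rbf tumor 287842 (log2 FC −2.13, adjusted p = 0.0534) or 290845 (log2 FC −2.21, adjusted p = 0.0542) and with the library-set term. Neutrophil markers had 1 of 7 called lower by edgeR and 6 by DESeq2, with sums from 6.36 to 53.2 CPM and from 7.66 to 541 CPM, the B1/P maximum again in tumor 225070. Skeletal muscle markers had 10 of 12 called lower, and B1/P tumor 248662 alone, with a sum of 757 CPM against 4.40 to 13.1 CPM in the other B1/P tumors and 2.10 to 16.1 CPM in P/Rbf tumors, carried them. Without this tumor 2 were called lower and 1 higher, and without P/Rbf tumor 290845, 6 were lower. Muscle creatine kinase, Ckm, had 0.0863, 0, 0, 0.0526 and 0.034 in P/Rbf against 0.0318, 0, 0, 1.301 and 89.1 CPM in B1/P and was not called without tumor 248662 (log2 FC −3.13, adjusted p = 0.093). limma-voom did not call Ckm or Mrc1. The part of immune, muscle or other cells in the differences described was not tested.

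**Figure D5:**
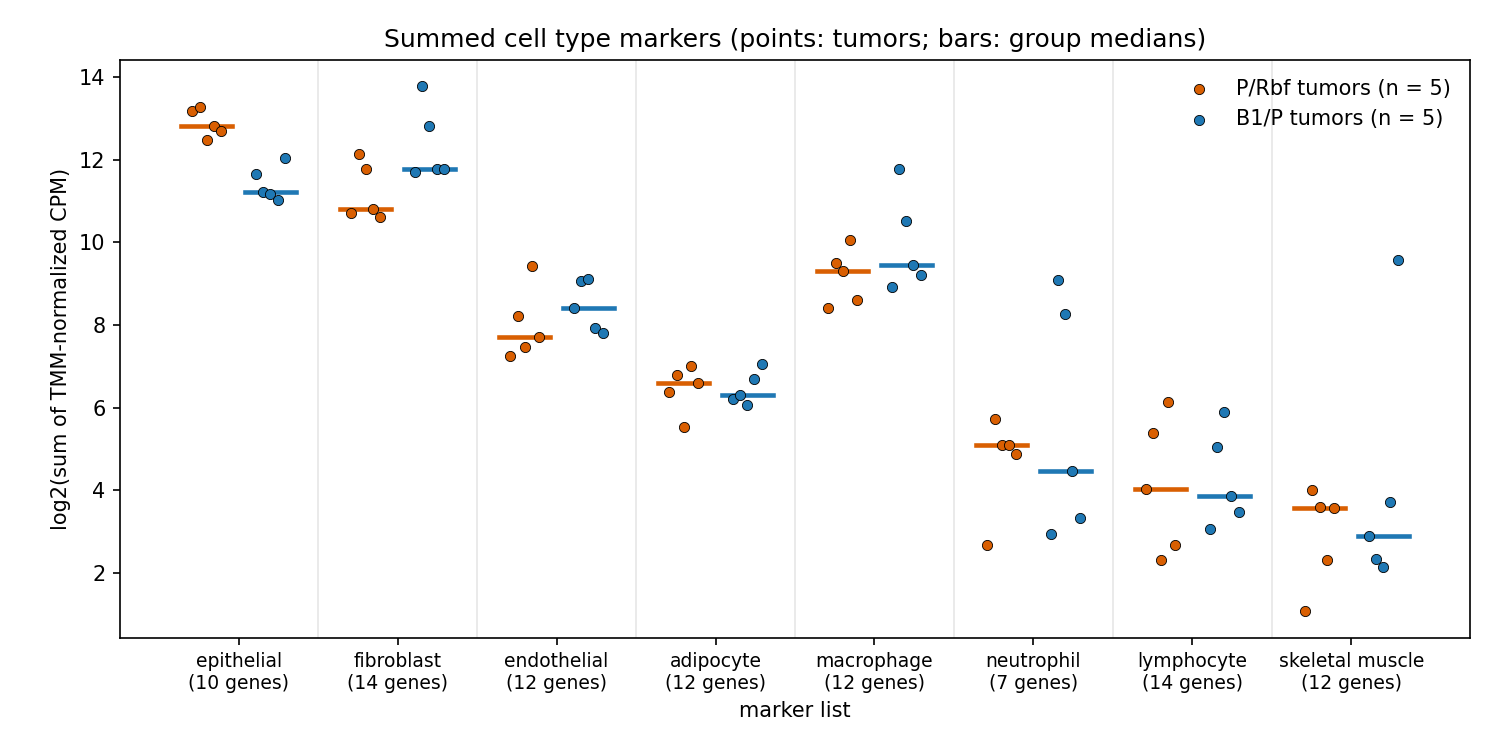
Summed levels of cell type markers in each tumor. Points give the sum of TMM-normalized CPM over each marker list on a log2 axis for single P/Rbf (orange) and B1/P (blue) tumors, and bars give group medians. Epithelial sums, which include Krt8 and Krt18, do not overlap (5686 to 9868 against 2087 to 4233 CPM). Fibroblast and macrophage sums are highest in B1/P tumor 225070, and the muscle sum stands out in B1/P tumor 248662 at 757 CPM.

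Over all genes, the largest rises among genes that averaged 5 CPM or more and did not overlap were D130009I18Rik, Muc5b, Kcnj5, Apof, Gm12873, R3hdml, Muc13, Clca3b, Vgll1 and Npy, 10 genes by that rule. D130009I18Rik, a long noncoding RNA (chromosome 14, 104612791 to 104966783), had 39.0, 25.6, 14.6, 11.6 and 23.1 in P/Rbf against 0, 0, 0, 0 and 0 CPM in B1/P, at least 257-fold higher in P/Rbf tumors when 3 counts per library are taken as the limit. Intervals beside other folds cover counting error alone, at 95%. Muc5b, a gel-forming mucin, had 1.61, 51.9, 1.80, 4137 and 85.7 in P/Rbf against 0.0318, 0.148, 0.0251, 0 and 0.0315 CPM in B1/P (log2 FC 14.04, SE 2.67, adjusted p = 0.00251, or log2 FC 9.44 without 287822), and tumor 287822 held most of it. DESeq2 and limma-voom did not call Muc5b. The cell surface mucin Muc13 had 18.1, 4.42, 52.7, 171 and 359 in P/Rbf against 0.223, 0.207, 0.101, 0.0887 and 1.39 CPM in B1/P (log2 FC 8.25, SE 1.23, adjusted p = 0.000643, or log2 FC 9.59 without 248662). R3hdml, a secreted protein, had 6.43 to 306 against 0.0591 to 1.39 CPM (log2 FC 8.38, SE 1.11, adjusted p = 0.000272, or log2 FC 9.75 without 248662). Vgll1, a cofactor of TEAD factors, had 1.92 to 62.2 against 0 to 0.237 CPM (log2 FC 7.79, SE 1.22, adjusted p = 0.00108). Npy, neuropeptide Y, had 1.36 to 41.5 against 0 to 0.189 CPM (log2 FC 7.53, SE 1.63, adjusted p = 0.00513). Apof had 1.65 to 136 against 0 to 0.148 CPM (log2 FC 9.80, SE 1.53, adjusted p = 0.000842, or log2 FC 7.95 without 287822), Gm12873 had 0.473 to 113 against 0 to 0.41 CPM (log2 FC 8.71, SE 1.44, adjusted p = 0.00112) and Clca3b had 2.37 to 613 against 0.0889 to 1.39 CPM (log2 FC 7.86, SE 1.75, adjusted p = 0.00614, or log2 FC 3.79 without 290845). Kcnj5, a potassium channel, had 0.0863 to 87.4 against 0 to 0.0296 CPM and was 1285-fold higher as a mean (355 to 10610), but tumor 290845 held most of it, and without that tumor it was 26.1-fold higher (6.80 to 222) and not called (log2 FC 4.34, adjusted p = 0.088). The 10 largest falls were Csn1s1, Col9a1, Gjc3, Slc6a15, Jakmip2, Sox10, Cnmd, Snorc, Bcl11a and Csn2, so milk proteins and cartilage genes made up 5 of the 10. Gjc3, a connexin of glial cells, had 0, 0, 0, 0 and 0 in P/Rbf against 17.0, 0.207, 4.50, 9.40 and 35.3 CPM in B1/P, at least 152-fold lower, and at least 88.7-fold lower without B1/P tumor 248662. Slc6a15, a transporter of neutral amino acids, had 0 to 0.0253 against 1.48 to 34.6 CPM and was 2146-fold lower (385 to 84790), or 1266-fold (227 to 50060) without tumor 248662. Jakmip2 had 0 to 0.0575 against 0.0592 to 58.1 CPM and was 1732-fold lower (479 to 14310), or 984-fold (272 to 8133) without tumor 225068. The calls of Kcnj5, Clca3b and Npy ended with the library-set term. limma-voom did not call Kcnj5, Clca3b or Npy.

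Further members of the lineage lists were named by the same rule, and tumors whose omission ended a call are given by number. Calca, which encodes calcitonin, had 0 to 9.11 against 0 to 0.063 CPM and was 96.3-fold higher in P/Rbf tumors (95% interval 43.95 to 263), or 50.6-fold (22.9 to 139) without 287822. Cxcl15, a chemokine of epithelia, had 4.60 to 482 against 0.0954 to 27.5 CPM (log2 FC 4.28, adjusted p = 0.0314, or log2 FC 5.86 without 248662). Cxcl15 lost its call without 225070, 246361, 255232 or 290845 (adjusted p up to 0.0988). Tnfsf11, RANKL, a progesterone-induced signal between luminal cells, had 0.136 to 39.4 against 0.127 to 1.81 CPM (log2 FC 4.00, adjusted p = 0.0466, or log2 FC 2.79 without 287822). Tnfsf11 lost its call without 225068, 225070, 246361, 255232, 248662, 287845 or 287822 (adjusted p up to 0.134). Nr4a1, an orphan nuclear receptor, had 7.44 to 53.2 against 24.2 to 141 CPM (log2 FC −2.03, adjusted p = 0.0124). Btn1a1, butyrophilin of the milk fat globule, had 0.0253 to 0.374 against 0.226 to 11.7 CPM (log2 FC −4.86, adjusted p = 0.0032). Muc1, an apical mucin, had 6.43 to 132 against 0.883 to 22.6 CPM (log2 FC 2.62, adjusted p = 0.0439). Muc1 lost its call without 225068, 246361, 255232, 248662, 287842 or 290845 (adjusted p up to 0.113). Cdkn2d, the CDK inhibitor p19, had 13.3 to 98.3 against 13.1 to 31.5 CPM (log2 FC 1.38, adjusted p = 0.0254). Cdkn2d lost its call without 225068, 255232, 287845 or 287822 (adjusted p up to 0.077). The calls of Calca, Cxcl15, Tnfsf11, Muc1 and Cdkn2d were lost with the library-set term, and those of Nr4a1 and Btn1a1 stayed. Those of Calca, Cxcl15, Tnfsf11, Muc1 and Cdkn2d were lost with limma-voom too.

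Squamous and matrix members gave these further calls. Dsc2, a desmosomal cadherin, had 63.6 to 287 against 19.2 to 94.0 CPM (log2 FC 1.44, adjusted p = 0.0486). Dsc2 lost its call without 225068, 246361, 255232, 287845, 290860 or 290845 (adjusted p up to 0.155). Krt1, a keratin of the upper epidermis, had 0.0315 to 0.443 against 0 to 69.7 CPM (log2 FC −6.25, adjusted p = 0.0315, or log2 FC −1.30 without 246361). Krt1 lost its call without 246361, 287842, 287845, 290860, 287822 or 290845 (adjusted p up to 0.497). Tgm3, an epidermal transglutaminase, had 0 to 0.126 against 0.0296 to 2.21 CPM (log2 FC −3.59, adjusted p = 0.0428, or log2 FC −1.33 without 246361). Tgm3 lost its call without 246361, 287842, 290860, 287822 or 290845 (adjusted p up to 0.353). Sbsn, suprabasin, had 6.73 to 15.7 against 5.62 to 43.4 CPM (log2 FC −1.46, adjusted p = 0.0242). Sbsn lost its call without 225068, 246361, 287842, 290860 or 290845 (adjusted p up to 0.0633). Col5a2, a chain of type V collagen, had 98.9 to 288 against 279.7 to 819 CPM (log2 FC −1.38, adjusted p = 0.0255). Col5a2 lost its call without 225070, 287842, 287822 or 290845 (adjusted p up to 0.0643). Col6a6, a chain of type VI collagen, had 0 CPM in every P/Rbf tumor against 0.063 to 3.56 CPM in B1/P tumors and was at least 15.4-fold lower in P/Rbf tumors, or 9.06-fold without 225068. Comp, cartilage oligomeric matrix protein, had 0.238 to 0.946 against 0.378 to 23.0 CPM (log2 FC −3.71, adjusted p = 0.0291, or log2 FC −1.86 without 255232). Comp lost its call without 255232, 287842, 290860, 287822 or 290845 (adjusted p up to 0.162). Ncan, the proteoglycan neurocan, had 0 to 0.0681 against 0 to 1.03 CPM and was 17.5-fold lower in P/Rbf tumors (95% interval 6.55 to 66.2), or 10.8-fold (3.84 to 41.8) without 255232. Ncan lost its call without 255232, 248662, 287842, 287845, 290860 or 287822 (adjusted p up to 0.0762). Tll1, a procollagen proteinase, had 0.506 to 80.4 against 0.63 to 2.94 CPM (log2 FC 3.58, adjusted p = 0.0468). Tll1 lost its call without 225068, 225070, 246361, 255232, 248662 or 287842 (adjusted p up to 0.952). The P/Rbf tumor 287842 held the 80.4 CPM, and without it the log2 fold change of Tll1 was −0.08. Mmp15, a membrane-bound metalloproteinase, had 37.3 to 219 against 15.8 to 59.7 CPM (log2 FC 1.43, adjusted p = 0.0481). Mmp15 lost its call without 225068, 225070, 246361, 248662, 287842, 290860, 287822 or 290845 (adjusted p up to 0.151). Itgav, the integrin alpha v chain, had 113 to 302 against 48.3 to 134 CPM (log2 FC 1.03, adjusted p = 0.0254). Itgav lost its call without 225068, 246361, 287845 or 290845 (adjusted p up to 0.0648). The calls of Dsc2, Krt1, Tgm3, Sbsn, Col5a2, Tll1, Mmp15 and Itgav were lost with the library-set term, and those of Col6a6, Comp and Ncan stayed. limma-voom did not call Dsc2, Krt1, Tgm3, Sbsn, Comp, Ncan, Tll1 or Mmp15, nor DESeq2 Krt1 or Tll1.

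Carbon and lipid metabolism gave these further calls. Eno2, the neuronal enolase, had 0.403 to 2.02 against 1.70 to 15.8 CPM (log2 FC −2.50, adjusted p = 0.0102). Pdhb, a subunit of pyruvate dehydrogenase, had 87.1 to 115 against 43.6 to 82.9 CPM (log2 FC 0.69, adjusted p = 0.0316). Pdhb lost its call without 225070, 255232, 287822 or 290845 (adjusted p up to 0.0706). Ndufb7, a subunit of complex I, had 56.0 to 689 against 40.9 to 75.7 CPM (log2 FC 2.10, adjusted p = 0.0184). Ndufb7 lost its call without 287845 (adjusted p up to 0.0647). Agpat2, an acyltransferase of triglyceride synthesis, had 31.4 to 52.8 against 11.7 to 40.8 CPM (log2 FC 0.87, adjusted p = 0.0414). Agpat2 lost its call without 225068, 246361, 255232, 248662, 287845, 290860 or 290845 (adjusted p up to 0.0919). Scd3, a desaturase, had 0.0263 to 1.04 against 0.578 to 7.28 CPM (log2 FC −3.08, adjusted p = 0.0397, or log2 FC −4.86 without 290860). Scd3 lost its call without 225068, 255232, 287842, 287845, 287822 or 290845 (adjusted p up to 0.141). Acss1, which makes acetyl-CoA in mitochondria, had 0.92 to 18.7 against 8.56 to 46.9 CPM (log2 FC −2.12, adjusted p = 0.0248, or log2 FC −3.20 without 287822). Acss1 lost its call without 225068, 287845, 290860 or 290845 (adjusted p up to 0.0599). Eci1, an isomerase of fatty acid oxidation, had 17.2 to 24.1 against 7.69 to 16.3 CPM (log2 FC 0.81, adjusted p = 0.016). Etfa, an electron carrier of fatty acid oxidation, had 103 to 118 against 47.2 to 96.4 CPM (log2 FC 0.65, adjusted p = 0.0339). Etfa lost its call without 225068, 246361, 248662, 290860, 287822 or 290845 (adjusted p up to 0.074). Slc27a2, a fatty acid transporter, had 0 CPM in every P/Rbf tumor against 0 to 0.251 CPM in B1/P tumors, with too few counts for a fold. Slc27a2 lost its call without 246361 (adjusted p up to 0.0598). Cyp51, a sterol demethylase, had 47.5 to 149 against 27.0 to 79.8 CPM (log2 FC 0.90, adjusted p = 0.0481). Cyp51 lost its call without 225068, 225070, 246361, 248662, 287842, 287845 or 290845 (adjusted p up to 0.112). The calls of Eno2, Pdhb, Ndufb7, Agpat2, Scd3, Acss1, Etfa, Slc27a2 and Cyp51 were lost with the library-set term, and that of Eci1 stayed. limma-voom did not call Eno2, Ndufb7, Slc27a2 or Cyp51.

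Amino acid and nucleotide metabolism and the marker lists added the rest. Gldc, of the glycine cleavage system, had 0.948 to 14.9 against 0.385 to 1.39 CPM (log2 FC 2.57, adjusted p = 0.0418, or log2 FC 1.25 without 287845). Gldc lost its call without 225068, 225070, 246361, 255232, 287845 or 290845 (adjusted p up to 0.214). Amt, also of the glycine cleavage system, had 7.79 to 43.7 against 3.17 to 13.0 CPM (log2 FC 1.63, adjusted p = 0.0176). Chac1, which degrades glutathione, had 3.44 to 8.20 against 1.05 to 3.61 CPM (log2 FC 1.45, adjusted p = 0.0177). Slc7a8, an amino acid transporter, had 5.45 to 9.79 against 6.07 to 38.1 CPM (log2 FC −1.36, adjusted p = 0.0288). Slc7a8 lost its call without 225070, 287842 or 290845 (adjusted p up to 0.0943). Gpt2, an alanine aminotransferase, had 7.95 to 29.3 against 22.0 to 54.4 CPM (log2 FC −1.23, adjusted p = 0.0325). Gpt2 lost its call without 246361, 248662, 287845, 290860, 287822 or 290845 (adjusted p up to 0.0752). Uck2, a uridine and cytidine kinase, had 126 to 1078 against 91.3 to 162 CPM (log2 FC 1.53, adjusted p = 0.0347). Uck2 lost its call without 225068, 246361, 255232, 248662, 287845 or 287822 (adjusted p up to 0.163). Sms, spermine synthase, had 55.4 to 109 against 31.3 to 50.0 CPM (log2 FC 0.97, adjusted p = 0.0307). Sms lost its call without 225068, 255232, 248662, 287842 or 290860 (adjusted p up to 0.0666). Pi16, a fibroblast marker, had 0.403 to 2.74 against 2.81 to 91.6 CPM (log2 FC −3.97, adjusted p = 0.0269, or log2 FC −2.05 without 225070). Pi16 lost its call without 225070, 287842, 290860 or 290845 (adjusted p up to 0.134). Cd163, a macrophage scavenger receptor, had 0.204 to 1.75 against 3.94 to 47.8 CPM (log2 FC −4.21, adjusted p = 0.00498, or log2 FC −2.92 without 225070). Mpo, myeloperoxidase of neutrophils, had 0 to 0.132 against 0.221 to 0.578 CPM (log2 FC −3.26, adjusted p = 0.027, or log2 FC −5.02 without 287822). Mpo lost its call without 246361, 287842, 290860 or 290845 (adjusted p up to 0.0573). Pvalb, parvalbumin of fast muscle, had 0 to 0.0288 against 0 to 19.4 CPM and was 635-fold lower in P/Rbf tumors (95% interval 114 to 25130), or 12.5-fold (1.78 to 542) without 248662. Pvalb lost its call without 248662 (adjusted p up to 0.0961). Tnnc2, a troponin of fast muscle, had 0 to 0.034 against 0 to 24.5 CPM and was 268-fold lower in P/Rbf tumors (91.5 to 1304), or 6.24-fold (1.77 to 33.7) without 248662. Tnnc2 lost its call without 248662 (adjusted p up to 0.0756). Actn3, an actinin of fast muscle, had 0.0288 to 0.306 against 0.277 to 67.1 CPM (log2 FC −6.57, adjusted p = 0.00723, or log2 FC −1.65 without 248662). The calls of Gldc, Amt, Chac1, Slc7a8, Uck2, Sms, Pi16, Cd163 and Mpo were lost with the library-set term, and those of Gpt2, Pvalb, Tnnc2 and Actn3 stayed.
 limma-voom did not call Slc7a8, Uck2, Sms, Pi16, Pvalb, Tnnc2 or Actn3, nor DESeq2 Pvalb.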

How the data were processed

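RNA from 15 mammary tumors and 3 normal glands, each from its own mouse, was sequenced as stranded, polyadenylated libraries in paired-end reads. The authors trimmed reads with cutadapt 1.18 and deposited expected counts per gene from RSEM 1.3.0, which shares reads that fit several genes among them, so that close paralogs and pseudogenes are uncertain. The methods name a human reference, but all 55450 gene identifiers and symbols equal those of mouse GENCODE M21 (GRCm38), whose coordinates are given here. The deposited expected counts were rounded to whole numbers. Totals ran from 27661173 to 37794889 over the 18 samples, and depth limits precision only for genes near 0 CPM. Counts cover read pairs, not molecules.

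edgeR 4.0.16 (R 4.3.3) was fitted to all 18 samples in 4 groups after TMM scaling and filterByExpr with a minimum count of 10, and the P/Rbf minus B1/P contrast was tested by the quasi-likelihood F test with Benjamini-Hochberg adjustment. SE is the absolute log2 fold change over the square root of F. A fold against a group at 0 uses a limit of 3 counts per library. Where no library of a group held over 3 counts but some held any, the ratio of summed counts per library size is given with an exact 95% binomial interval. Where nothing marks pairing, each mouse counts as 1 replicate. Alternatives were DESeq2 1.42.0, limma-voom 3.58.1 with quantile normalization, no TMM scaling, no filter, the strict filter of the study, the 10 tumors alone, a library-set term, the second library set alone, a 2-fold threshold and each tumor left out. The library sets were inferred here, and no label or method names them. The scripts were tested on simulated data.

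The members and the 42 gene lists were chosen with earlier results of these data known. The rule for named genes took Brca1, Trp53 and Rb1, a list of anchor genes of lineage, matrix and metabolism, up to 4 called members per direction and list with the largest absolute change, and the 10 largest rises and falls among genes that averaged 5 CPM or more and did not overlap. It gives 238 genes, and all but 4, which are not reported here, are named. Mcm6 was named outside the rule, after its values were seen, for its promoter. Promoters are from RefSeq (GRCm38.p6), matched by symbol.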

Additional observations from a re-analysis of the deposited data

Results flagged for a closer look

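For each gene named in the text, the 5 tumors of a group were searched for 1 tumor standing far from the other 4 on the scale of log2(CPM + 0.5), where its gap to the nearest tumor took more than 0.71 of the range of the group. This was so for 39 of 441 pairs of a gene and a group. Chance alone marks about 1 pair in 20, and the genes are not independent of each other. B1/P tumor 225070 accounted for 11 of the 39, the most of any tumor. Highest and lowest below are within the group of the tumor. B1/P tumor 225068 had the lowest level of P3h1 (25.7 CPM). B1/P tumor 225070 had the highest level of Cd163 (47.8 CPM) and the lowest of Bcl11a (14.3 CPM), Bmp7 (0.859 CPM), Col17a1 (0.829 CPM), Col4a1 (1005 CPM), Gas1 (18 CPM), Id4 (1.39 CPM), Itgb8 (13.9 CPM), Krt5 (0 CPM), Psph (17 CPM) and Sox10 (164 CPM). B1/P tumor 246361 had the highest level of Itga1 (71.2 CPM), Krt1 (69.7 CPM), Sucla2 (41.7 CPM) and Tgm3 (2.21 CPM) and the lowest of Col9a2 (7.04 CPM) and Elf5 (11.8 CPM). B1/P tumor 248662 had the highest level of Actn3 (67.1 CPM), Ckm (89.1 CPM), Muc13 (1.39 CPM), Pvalb (19.4 CPM), Sdhb (72.3 CPM) and Tnnc2 (24.5 CPM). B1/P tumor 255232 had the highest level of Itgb6 (10.3 CPM) and Pycr1 (39.2 CPM) and the lowest of Hspg2 (194 CPM). P/Rbf tumor 287822 had the highest level of Aldh1a1 (97.1 CPM). P/Rbf tumor 287842 had the highest level of Tll1 (80.4 CPM). P/Rbf tumor 287845 had the highest level of Acan (1.58 CPM) and Sox10 (1.89 CPM) and the lowest of Foxa1 (166 CPM), Gm12873 (0.473 CPM) and Pycr1 (3.63 CPM). P/Rbf tumor 290845 had the highest level of Kcnj5 (87.4 CPM) and Kit (87.3 CPM). P/Rbf tumor 290860 had the highest level of Ccnd2 (58.7 CPM), Scd3 (1.04 CPM) and Trp63 (66.4 CPM). The cause of these single levels was not tested.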

How the results depend on the processing

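No paired analysis was possible because the groups share no replicate numbers. The 3684 calls kept their order of more lower than higher genes in every alternative, by 1 gene with limma-voom (1579 higher, 1580 lower), except the strict filter, a log2 CPM of 6 or more in no fewer than 6 samples, which tested 4549 genes and called 867 (435 higher, 432 lower). Leaving out each tumor in turn gave 2762 calls (without P/Rbf tumor 290845) to 3937 calls (without B1/P tumor 225070), with 1225 to 1753 higher and 1537 to 2184 lower. Fitted on the 10 tumors alone, 1763 genes were called (728 higher, 1035 lower), of which 1753 were among the 3684 with the same direction. With the library-set term 2008 genes were called (618 higher, 1390 lower, 1592 shared), and 2242 in the second set alone (742 higher, 1500 lower, 1683 shared). Both fits rest on 2 B1/P tumors. DESeq2 called 5028 genes (3605 shared), limma-voom 3159 (2561 shared), edgeR without TMM scaling 3608 (3407 shared, median log2 fold change −0.13) and edgeR without the filter 3269 (2978 shared). Of the 191 called genes of the naming rule and Mcm6, 192 in all, 187 were also called by DESeq2 (Dpt, Krt1, Muc5b, Pvalb and Tll1 were not), 142 by limma-voom, 184 without TMM scaling, 182 without the filter, 125 in the fit of the 10 tumors and 110 with the library-set term. For 136 the call held without each tumor in turn, and for 83 in every fit run as well. For 89 the fold moved by over 1.5 times without some 1 tumor, and for 43 by over 2 times, with a value without 1 tumor in the text. Among the lists, the library-set term gave 5 higher calls against 17 in luminal structure, 7 against 21 in replication, 1 against 7 in nucleotide synthesis and 2 against 7 in pyruvate oxidation and the TCA cycle, and 6 lower calls against 11 in basal genes, 8 against 14 in matrix glycoproteins, 6 against 12 in other collagens and 11 against 11 in cartilage. Counts of 3 or fewer in a list could fall to 0 without 1 tumor. The cause of each loss was not tested.

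Of the called genes named in the text only Tll1 changed sign, without P/Rbf tumor 287842, which held most of it. Among those not called, Acly turned with limma-voom (−0.063), without TMM scaling (−0.050), with the strict filter (−0.10) and with both library-set fits (−0.17). Lamb3 turned with limma-voom (−0.23) and both library-set fits (−0.093), and Trp53 did so with both library-set fits (0.50). With limma-voom the log2 fold change was also 0.34 for Greb1, −0.041 for Itgb3, −0.48 for Loxl2, −0.11 for Ppargc1a and −0.31 for Scd1. With 1 tumor left out it ran from −0.15 to 0.22 for Acly, −0.32 to 0.092 for Fasn, −0.28 to 1.00 for Fn1, −1.55 to 0.87 for Greb1, −0.098 to 0.52 for Hk2, −0.99 to 1.00 for Itgb3, −0.16 to 0.53 for Lamb3, −1.14 to 0.60 for Loxl2, −0.29 to 0.68 for Scd1, −0.19 to 0.57 for Slc2a1, −0.47 to 1.45 for Slc7a11, −0.077 to 4.03 for Tll1 and −1.27 to 0.11 for Tnc. The cause was not tested. Genes near 0 CPM in 1 group rest on few counts, so their fold changes depend on the prior count.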
